A study of Homo sapiens with 27 samples.

Results

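The response to loss of SIRT5 was compared between 2 human melanoma cell lines, A375 and A2058. For each gene, the knockdown effect in a line was the mean of the 2 SIRT5 hairpin arms minus the control arm, on the scale log2(FPKM + 0.5), where FPKM is the number of sequenced fragments scaled to transcript length and library size. The line difference was the effect in A375 minus the effect in A2058, so a positive value marks a larger rise or a smaller fall in A375. It was tested in 11172 of the 26004 genes in the deposited table, those with an FPKM of at least 1 in 3 or more libraries of each line. Of the 27 RNA-seq libraries of the series, 18 entered: 9 of A375 and 9 of A2058. The study asked how SIRT5 contributes to the survival of melanoma cells.

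All 18 libraries came from cells that had been infected with a lentivirus of the pLKO.1 backbone and selected with puromycin at 1 µg/ml. Polybrene was present at 8 µg/ml during the infection, and total RNA was taken 96 h after infection. In each line, 3 control libraries carried a hairpin against the luciferase of Gaussia, a gene that human cells lack, and 3 libraries each carried one of the SIRT5 hairpins, KD1 or KD2. The controls therefore shared the virus, the vector, polybrene and puromycin with the knockdown cells. The labels number the hairpins 546 and 547, and no source used here states which of them is KD1. RNA came from 3 wells per group and nothing states separate infections, so p-values measure the spread between these libraries, which may be technical. Each line descends from the tumour of 1 patient, so the comparison describes these 2 lines. Effects of KD1 and KD2 within a line share the same 3 control libraries. In bulk RNA, fewer cells of a type and less RNA per cell cannot be told apart.

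SIRT5 is an NAD-dependent enzyme, found in mitochondria and in the cytosol, that strips acidic acyl marks (malonyl, succinyl and glutaryl) off lysine residues. Enzymes of fatty acid oxidation, the citric acid cycle and glycolysis are among its known substrates. A375 and A2058 both carry an activating BRAF mutation, which feeds the ERK kinase pathway.

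SIRT5 itself had FPKM values of 1.16, 1.37 and 1.21 in the controls, 0.0561, 0.0766 and 0.0125 in KD1 and 0.183, 0.0936 and 0.187 in KD2 of A375. In A2058 it stood at 2.36, 2.17 and 1.81 in the controls, 0.226, 0.147 and 0.161 in KD1 and 0.413, 0.413 and 0.444 in KD2. In both lines every knockdown library lay below every control. The effect was -1.54 ± 0.11 in A375 and -1.72 ± 0.11 in A2058, and the line difference of 0.18 ± 0.15 did not pass the test (adjusted p = 0.36). Added constants understate changes of low genes: in a fit to the recovered read counts (limma-voom) the direction flipped, and the difference was -0.98 (adjusted p = 0.028).

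Depth was 7096990 to 23892063 fragments assigned to genes in the A375 libraries and 29339123 to 54452938 in those of A2058, so the counting error of low genes was larger in A375. Library 3 of A375 KD2 stood apart: its root mean square distance from the other 2 libraries of its arm was 0.5696 on the log2 scale, against 0.173 to 0.431 for the others, and its changes from control had a slope of 0.481 on those of its arm. Without it the number of genes with a line difference was 6889 rather than 5112. The labels state that a raw file of A375 control library 2 was truncated, and its depth was 7280431 fragments; without it the number was 4021. Gene length also moved with the line difference, whose median was 0.21 in the shortest of 5 length bins, -0.0080 in the middle bin and -0.22 in the longest. This trend was mostly in A375, where the medians of the effect were 0.20 and -0.18 in the shortest and longest bins, against -0.034 and 0.066 in A2058. With the trend removed from each library, 5062 genes had a line difference.

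**Figure D1:**
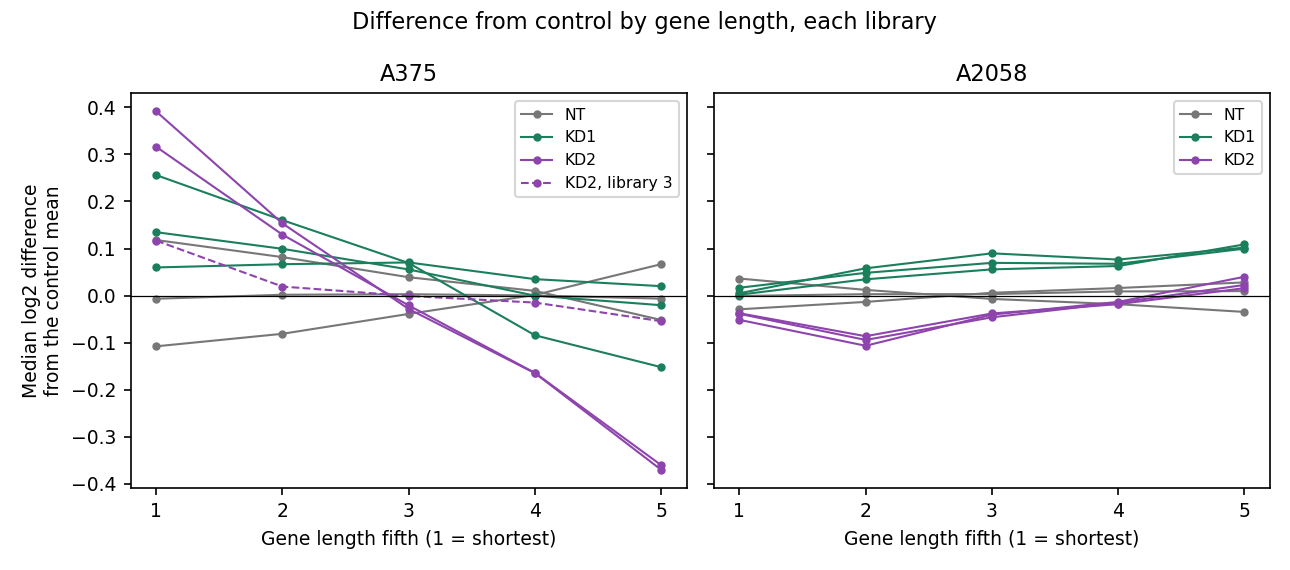
Median log2 difference of each library from the mean of its line's controls (y axis) for genes in 5 bins of length, from the shortest to the longest (x axis), with 1 line per library and panels for A375 and A2058. Libraries 1 and 2 of A375 KD2 slope downwards most, by -0.162 and -0.152 per doubling of length, and those of A2058 are close to flat.

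Both lines were checked against 9 markers of the melanoma lineage, whose summed FPKM was 213 to 407 in A375 and 666 to 915 in A2058. SOX10, the transcription factor of the pigment cell lineage, was present in both, with FPKM values of 193, 178 and 193 in the controls, 293, 254 and 316 in KD1 and 239.6, 214 and 182 in KD2 of A375. Its values in A2058 were 84.9, 76.3 and 84.6 in the controls, 119, 127 and 126 in KD1 and 102, 88.8 and 98.9 in KD2. The pigment enzyme genes TYR, DCT and TYRP1 were absent or near 0 in A375, where the highest value in any library was 0.153 (TYRP1), so the label of A375 as melanoma rests on SOX10, S100B and PAX3. For other cell types, summed FPKM over 5 keratinocyte markers, mostly KRT10, was 23.2 to 31.6 in the controls, 17.4 to 18.4 in KD1 and 30.1 to 32.5 in KD2 of A375 and 19.1 to 21.9 in the controls, 12.6 to 15.3 in KD1 and 18.6 to 19.1 in KD2 of A2058. Over 8 fibroblast markers, mostly LUM, it was 2.398 to 3.404 in A375, and in A2058 14.9 to 17.2 in the controls, 19.2 to 21.4 in KD1 and 10.96 to 11.6 in KD2. Over 6 endothelial markers it was 2.17 to 3.16 in the controls, 3.699 to 4.37 in KD1 and 2.73 to 3.58 in KD2 of A375 and 1.45 to 1.95 in A2058. Over 7 leukocyte markers, mostly LYZ, it was 11.2 to 13.7 in the controls, 20.4 to 23.2 in KD1 and 12.6 to 15.1 in KD2 of A375 and 2.097 to 2.91 in the controls, 5.39 to 6.597 in KD1 and 4.97 to 5.94 in KD2 of A2058. These sums therefore moved with the arms, the leukocyte sum upwards with both hairpins in A2058 and with KD1 in A375, and their part in the results was not tested. The defining markers TP63, DSG3, PTPRC, CD3E, CDH5 and COL1A2 were at or near 0 in all 18 libraries.

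The lines differed in their response at 5112 of the 11172 genes (45.8%, adjusted p under 0.05). The response was higher in A375 for 2743 genes (24.6%) and lower for 2369 (21.2%), with a median difference of -0.0096 over all genes tested. These 2 shares are the background for every gene group below. List members called higher or lower are those whose response passed the test in that direction. A difference of at least 1 on the log2 scale was reached by 1033 genes (9.25%), 532 higher and 501 lower in A375. Within A375, 3629 genes rose (32.5%) and 3395 fell (30.4%) on knockdown. Within A2058, 2779 rose (24.9%) and 2862 fell (25.6%). Both lines changed at 3787 genes, of which 3016 moved the same way and 771 moved in opposite directions. Among those moving together, 2075 had no line difference. Across all 11172 genes the effects in the 2 lines had a Pearson r of 0.422, given as a description, since genes are not independent replicates.

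Genes that rose in A375 and fell in A2058 numbered 479, and those that fell in A375 and rose in A2058 numbered 292. A further 299 rose in both lines but more in A375, and 198 rose more in A2058. Another 237 fell in both but more in A375, and 207 fell more in A2058. The largest classes had a change called in 1 line: 1035 genes rose and 1013 fell in A375, against 540 that rose and 666 that fell in A2058. A further 57 were higher and 89 lower in A375 with no change called within either line. With KD1 alone 4191 genes (37.5%) differed between the lines, and with KD2 alone 5170 (46.3%). The line difference itself differed between the hairpins at 3641 genes (32.6%), and at 255 of them it was called in opposite directions. Where a gene described below was called in opposite directions with the 2 hairpins within a line, the values of both are given.

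**Figure D2:**
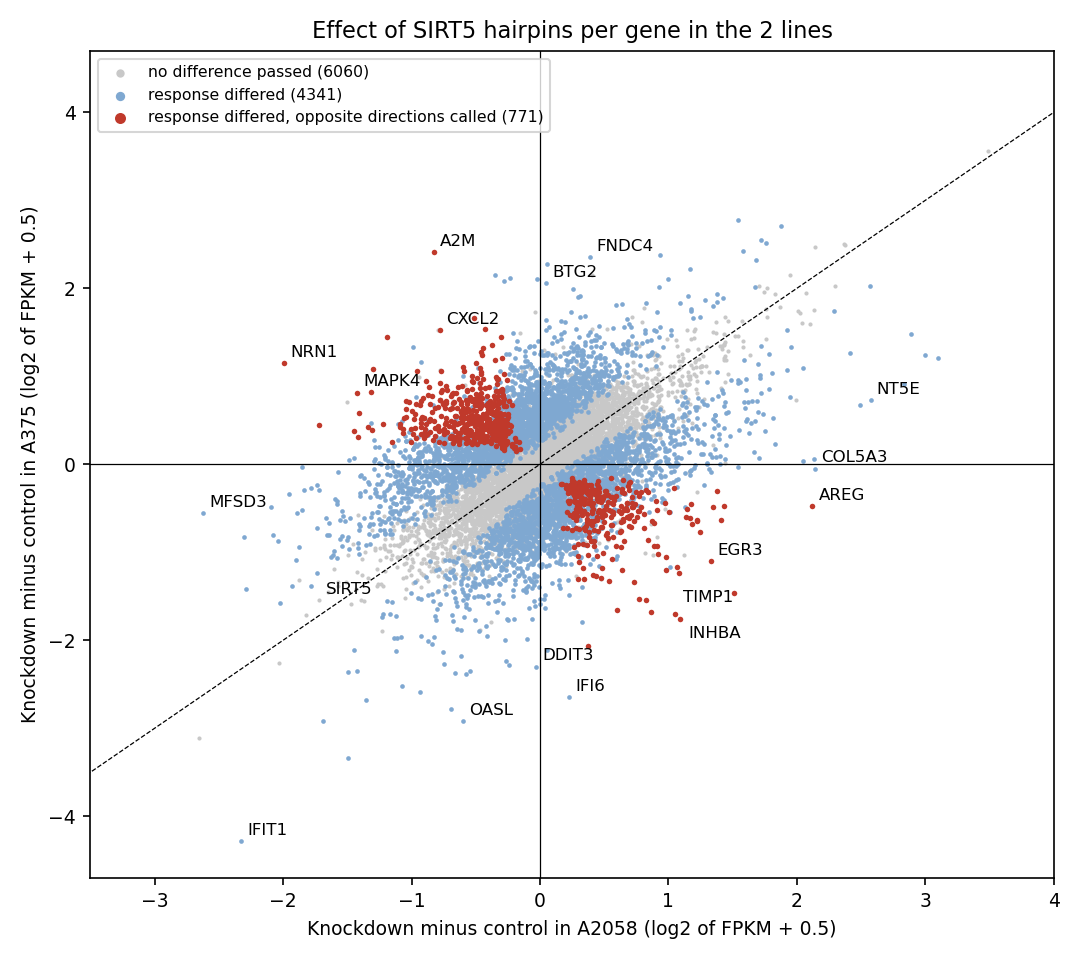
Knockdown effect in A375 (y axis) against that in A2058 (x axis), both in log2(FPKM + 0.5), with 1 point per gene tested. Colours mark genes with no line difference, with one, and with one and opposite calls in the 2 lines. The 771 opposite genes fill the upper left and lower right corners, among them A2M (3.23) and INHBA (-2.86), far from the diagonal of equal effects.

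Among genes whose difference was called in the same direction with both hairpins, the 5 largest that rose in A375 and fell in A2058 encode a protease inhibitor, a neuronal surface protein, a trafficking GTPase, a chemokine and a kinase. A2M (chromosome 12, 9067664 to 9116229, minus strand), alpha-2-macroglobulin, a secreted inhibitor of proteases, had FPKM values of 3.102, 3.47 and 2.94 in the controls, 23.4, 22.9 and 24.98 in KD1 and 16.03, 15.1 and 14.2 in KD2 of A375. The A2M values in A2058 were 15.4, 15.6 and 16.1 in the controls, 3.06, 3.81 and 3.77 in KD1 and 19.1, 20.8 and 20.98 in KD2. For A2M, all 6 A375 knockdown libraries lay above the 3 controls, and the A2058 KD1 libraries lay below the controls and those of KD2 above them. The A2M response was 2.41 ± 0.076 in A375 and -0.82 ± 0.076 in A2058, a line difference of 3.23 ± 0.11 (adjusted p = 2.1e-11). In A2058 the hairpins moved A2M in different directions, by -2.01 ± 0.088 with KD1 and 0.36 ± 0.088 with KD2, so its fall there rested on KD1. NRN1 (chromosome 6, 5997999 to 6007605, minus strand), neuritin, a membrane-anchored protein of neurite growth, had FPKM values of 4.53, 3.68 and 4.303 in the controls, 13.8, 11.5 and 15.3 in KD1 and 6.997, 7.71 and 6.77 in KD2 of A375. The NRN1 values in A2058 were 16.8, 11.4 and 16.4 in the controls, 3.72, 4.099 and 3.22 in KD1 and 3.01, 3.16 and 2.82 in KD2. For NRN1, all 6 A375 knockdown libraries lay above their 3 controls, and all 6 of A2058 below theirs. Between the lines NRN1 differed by 3.14 ± 0.17 (adjusted p = 6.2e-09), with 1.15 ± 0.12 in A375 and -1.99 ± 0.12 in A2058. RAB26 (chromosome 16, 2140803 to 2154165, plus strand), a small GTPase of vesicle traffic, had FPKM values of 3.997, 3.99 and 2.45 in the controls, 9.64, 9.08 and 10.8 in KD1 and 12.8, 10.7 and 8.44 in KD2 of A375. The RAB26 values in A2058 were 5.86, 4.51 and 6.29 in the controls, 3.69, 3.98 and 4.28 in KD1 and 1.002, 1.18 and 0.968 in KD2. For RAB26, all 6 A375 knockdown libraries lay above their 3 controls, and all 6 of A2058 below theirs. With 1.45 ± 0.15 in A375 and -1.19 ± 0.15 in A2058, RAB26 gave a line difference of 2.64 ± 0.21 (adjusted p = 2.8e-07). CXCL2 (chromosome 4, 74097040 to 74099196, minus strand), a chemokine that attracts neutrophils, had FPKM values of 1.25, 0.8202 and 1.06 in the controls, 8.58, 11.4 and 13.2 in KD1 and 1.58, 0.672 and 1.57 in KD2 of A375. The CXCL2 values in A2058 were 5.09, 5.62 and 5.49 in the controls, 4.11, 4.23 and 4.32 in KD1 and 1.66, 2.15 and 2.22 in KD2. For CXCL2, the A375 KD1 libraries lay above the controls and those of KD2 overlapped them, and all 6 A2058 knockdown libraries lay below the 3 controls. The CXCL2 response was 1.53 ± 0.17 in A375 and -0.78 ± 0.17 in A2058, a line difference of 2.31 ± 0.24 (adjusted p = 3.5e-06). In A375 CXCL2 moved by 2.89 ± 0.19 with KD1 and 0.16 ± 0.19 with KD2. MAPK4 (chromosome 18, 50560087 to 50731826, plus strand), an atypical MAP kinase, had FPKM values of 0.9803, 0.805 and 0.864 in the controls, 1.91, 1.72 and 1.73 in KD1 and 2.06, 2.33 and 1.897 in KD2 of A375. The MAPK4 values in A2058 were 10.3, 9.57 and 9.11 in the controls, 2.97, 2.73 and 2.97 in KD1 and 3.78, 4.17 and 3.23 in KD2. For MAPK4, all 6 A375 knockdown libraries lay above their 3 controls, and all 6 of A2058 below theirs. Between the lines MAPK4 differed by 2.24 ± 0.12 (adjusted p = 6.9e-09), with 0.82 ± 0.087 in A375 and -1.43 ± 0.087 in A2058.

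The 5 largest differences in the other direction, in genes that fell in A375 and rose in A2058, include growth factors, a matrix protease inhibitor and an immediate early factor. INHBA (chromosome 7, 41667168 to 41705834, minus strand), the subunit of activin A, had FPKM values of 44.97, 46.9 and 30.4 in the controls, 23.8, 33.9 and 20.7 in KD1 and 3.68, 4.11 and 8.01 in KD2 of A375. The INHBA values in A2058 were 5.44, 4.8 and 4.33 in the controls, 16.04, 14.2 and 12.3 in KD1 and 8.55, 7.32 and 9.33 in KD2. For INHBA, the A375 KD2 libraries lay below the controls and those of KD1 overlapped them, and all 6 A2058 knockdown libraries lay above the 3 controls. With -1.76 ± 0.21 in A375 and 1.09 ± 0.21 in A2058, INHBA gave a line difference of -2.86 ± 0.29 (adjusted p = 3.2e-06). TIMP1 (chromosome X, 47582408 to 47586789, plus strand), a secreted inhibitor of matrix metalloproteinases, had FPKM values of 1884, 1841 and 2072 in the controls, 469.8, 442 and 538 in KD1 and 880.5, 696 and 629 in KD2 of A375. The TIMP1 values in A2058 were 151, 138 and 144 in the controls, 214, 212 and 193 in KD1 and 433, 397 and 472 in KD2. For TIMP1, all 6 A375 knockdown libraries lay below their 3 controls, and all 6 of A2058 above theirs. The TIMP1 response was -1.70 ± 0.099 in A375 and 1.05 ± 0.099 in A2058, a line difference of -2.75 ± 0.14 (adjusted p = 3.7e-09). AREG (chromosome 4, 74445136 to 74455005, plus strand), amphiregulin, a ligand of the EGF receptor, had FPKM values of 13.2, 13.4 and 15.3 in the controls, 23.3, 19.7 and 25.8 in KD1 and 4.25, 4.15 and 4.07 in KD2 of A375. The AREG values in A2058 were 2.895, 2.75 and 2.96 in the controls, 11.9, 12.9 and 13.1 in KD1 and 15.4, 13.8 and 18.6 in KD2. For AREG, the A375 KD1 libraries lay above the controls and those of KD2 below them, and all 6 A2058 knockdown libraries lay above the 3 controls. Between the lines AREG differed by -2.59 ± 0.13 (adjusted p = 3.7e-09), with -0.47 ± 0.094 in A375 and 2.12 ± 0.094 in A2058. AREG in A375 moved by 0.69 ± 0.11 with KD1 and -1.64 ± 0.11 with KD2, and in A2058 by 1.96 ± 0.11 and 2.28 ± 0.11. ACTBL2 (chromosome 5, 57480018 to 57482811, minus strand), an actin-like protein, had FPKM values of 3.06, 2.96 and 2.71 in the controls, 0.229, 0.402 and 0.292 in KD1 and 0.183, 0.437 and 0.379 in KD2 of A375. The ACTBL2 values in A2058 were 0.907, 1.04 and 1.15 in the controls, 0.308, 0.217 and 0.297 in KD1 and 4.07, 4.195 and 5.53 in KD2. For ACTBL2, all 6 A375 knockdown libraries lay below the 3 controls, and the A2058 KD1 libraries lay below the controls and those of KD2 above them. With -2.06 ± 0.13 in A375 and 0.37 ± 0.13 in A2058, ACTBL2 gave a line difference of -2.44 ± 0.18 (adjusted p = 2.0e-07). The A2058 arms of ACTBL2 also parted, at -0.98 ± 0.14 with KD1 and 1.73 ± 0.14 with KD2. EGR3, a zinc finger factor induced at once by growth signals, had FPKM values of 15.6, 12.9 and 12.9 in the controls, 6.04, 4.69 and 5.05 in KD1 and 6.86, 7.88 and 6.91 in KD2 of A375. The EGR3 values in A2058 were 3.25, 2.77 and 2.49 in the controls, 8.38, 8.003 and 7.85 in KD1 and 8.48, 6.61 and 7.94 in KD2. For EGR3, all 6 A375 knockdown libraries lay below their 3 controls, and all 6 of A2058 above theirs. The EGR3 response was -1.10 ± 0.10 in A375 and 1.33 ± 0.10 in A2058, a line difference of -2.43 ± 0.14 (adjusted p = 1.7e-08).

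**Figure D3:**
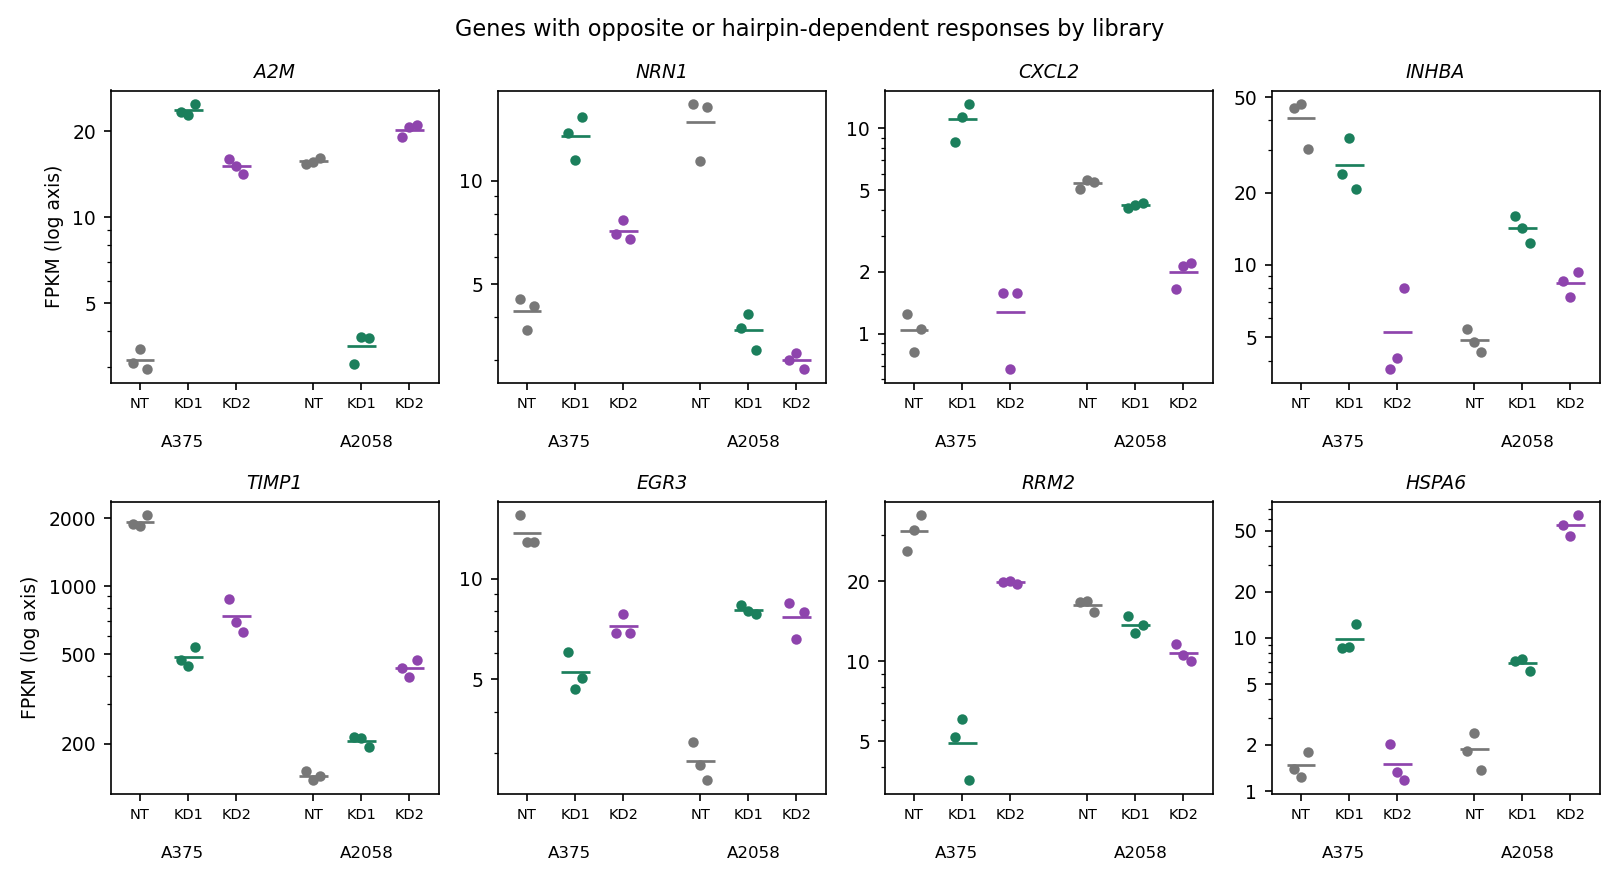
FPKM on a log axis (y) of 8 genes in each of the 18 libraries, by line and arm (x), with points for libraries and a short line for the mean of 3. A2M and NRN1 sit above the controls in A375 and, with KD1, below them in A2058, and TIMP1 and EGR3 do the reverse, whereas RRM2 and HSPA6 depend on the hairpin.

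Most interferon effectors, the antiviral proteins induced by interferon, fell in both lines, and 21 of 31 had a lower response in A375. Of 39 interferon effectors in the table, 31 were tested, and 0 (0%) were higher in A375, 21 (67.7%) lower, and 10 did not pass. Their median line difference was -1.22, with median responses of -1.74 in A375 and -0.59 in A2058. Within A375 27 of the 31 fell and 2 rose, and within A2058 21 fell and 2 rose. The lower count was 19 with each hairpin alone. It dropped to 13 where an FPKM of 1 was required in every library, which removes genes that fell below it, and without A375 KD2 library 3 another 3 were higher. Of 25 promoters found (250 bases before the RefSeq start, GRCh38.p14), 16 (64%) held the interferon response motif GAAANNGAAA on either strand. It was in 3.07% of all 27305 and in 10 of the 19 lower ones. Those of IFIT1 (chr10:89392373-89392622, plus strand) and IFI6 (chr1:27672193-27672442, minus strand) are shown because IFI6 has the largest line difference of the list and IFIT1 the largest fall in A375, with the motif in capitals.
IFIT1: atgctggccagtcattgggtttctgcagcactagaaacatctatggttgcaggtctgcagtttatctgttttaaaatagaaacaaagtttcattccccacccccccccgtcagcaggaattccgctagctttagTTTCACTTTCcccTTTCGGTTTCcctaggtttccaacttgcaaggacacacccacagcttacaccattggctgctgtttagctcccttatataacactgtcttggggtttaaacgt
IFI6: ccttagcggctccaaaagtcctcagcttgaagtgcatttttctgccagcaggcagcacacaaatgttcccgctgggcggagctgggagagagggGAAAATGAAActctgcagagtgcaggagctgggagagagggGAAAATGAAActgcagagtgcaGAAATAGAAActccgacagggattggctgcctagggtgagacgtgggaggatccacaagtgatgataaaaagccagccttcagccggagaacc

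A motif match is a description of these letters, not a test of binding. IFIT1, which binds viral RNA that lacks the host cap methylation, had FPKM values of 27.8, 17.3 and 12.8 in the controls, 0.377, 0.447 and 0.389 in KD1 and 0.479, 0.499 and 0.635 in KD2 of A375. The IFIT1 values in A2058 were 5.84, 8 and 6.41 in the controls, 1.22, 1.24 and 1.09 in KD1 and 0.5405, 0.788 and 0.876 in KD2. For IFIT1, all 12 knockdown libraries lay below the controls of their line. Between the lines IFIT1 differed by -1.96 ± 0.25 (adjusted p = 2.0e-05), with -4.29 ± 0.17 in A375 and -2.33 ± 0.17 in A2058. IFI6, an interferon-induced protein of mitochondria and the endoplasmic reticulum, had FPKM values of 497, 279.5 and 282 in the controls, 73.5, 57.5 and 82.3 in KD1 and 57.4, 40.8 and 29.7 in KD2 of A375. The IFI6 values in A2058 were 38.7, 39.1 and 41.6 in the controls, 37.5, 38.95 and 36.5 in KD1 and 59.8, 48.8 and 66.8 in KD2. For IFI6, all 6 A375 knockdown libraries lay below the 3 controls, and the A2058 KD2 libraries lay above the controls and those of KD1 overlapped them. With -2.65 ± 0.20 in A375 and 0.23 ± 0.20 in A2058, IFI6 gave a line difference of -2.87 ± 0.28 (adjusted p = 1.8e-06). OASL, an antiviral relative of the oligoadenylate synthetases, had a line difference of -2.31 ± 0.25 (A375 -2.92, A2058 -0.60, adjusted p = 5.1e-06). OASL also parted between hairpins in A2058, at -1.53 ± 0.20 with KD1 and 0.33 ± 0.20 with KD2. SAMD9, an antiviral factor, differed by -2.17 ± 0.43 between the lines (A375 -2.12, A2058 0.057, adjusted p = 9.3e-04). ISG15, the ubiquitin-like modifier, had -2.18 ± 0.18 in A375 and -0.61 ± 0.18 in A2058, a difference of -1.57 ± 0.25 (adjusted p = 1.8e-04). Of the 10 effectors that did not pass the test, IFIT2, a relative of IFIT1, had -2.25 ± 0.19 in A375 and -2.03 ± 0.19 in A2058, a difference of -0.22 ± 0.27 (adjusted p = 0.51). BST2, tetherin, which holds budding virus at the cell surface, had -1.34 ± 0.19 and -1.57 ± 0.19, a difference of 0.24 ± 0.26 (adjusted p = 0.48).

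Sensors of foreign RNA and the factors that signal to and from interferon were more mixed. The RNA sensing and interferon signalling genes list had 22 tested members of 27 in the table, of which 2 (9.09%) were higher in A375, 10 (45.5%) lower, and 10 did not pass. Median responses were 0.054 in A375 and -0.092 in A2058, and the median difference was -0.23. The lower count was 4 with KD1 alone, and 6 without A2058 control library 3 or without A375 control library 1. DDX58, the RNA sensor RIG-I, responded by -2.79 in A375 and -0.69 in A2058, a difference of -2.09 ± 0.36 (adjusted p = 2.9e-04). EIF2AK2, the RNA-activated kinase PKR, had a line difference of -1.27 ± 0.20 (A375 -1.88, A2058 -0.61, adjusted p = 1.5e-04). IFIH1, the RNA sensor MDA5, differed by -0.89 ± 0.21 between the lines (A375 -1.97, A2058 -1.08, adjusted p = 0.003).

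Genes of antigen presentation by MHC class I, which interferon also induces, were higher in A375 or not called. Of 20 MHC class I presentation genes in the table, 19 were tested, and 11 (57.9%) were higher in A375, 0 (0%) lower, and 8 did not pass. MHC class I presentation genes had median responses of 0.42 in A375 and 0.048 in A2058 and a median difference of 0.51. MHC class I presentation genes had a median of 0.23, with 8 higher and 3 lower, under quantile normalization. The higher count was 7 with KD2 alone. HLA-C, a class I heavy chain whose reads can be shared with its close relatives, had FPKM values of 119.8, 102 and 120 in the controls, 317, 273 and 388 in KD1 and 296, 276 and 199.7 in KD2 of A375. The HLA-C values in A2058 were 116, 104 and 120.1 in the controls, 97.8, 107 and 104 in KD1 and 224, 204 and 221 in KD2. For HLA-C, all 6 A375 knockdown libraries lay above the 3 controls, and the A2058 KD2 libraries lay above the controls and those of KD1 overlapped them. With 1.33 ± 0.12 in A375 and 0.40 ± 0.12 in A2058, HLA-C gave a line difference of 0.93 ± 0.17 (adjusted p = 4.9e-04). The HLA-C difference was 1.64 with KD1 and 0.22 with KD2, the latter not called. TAP1, a subunit of the peptide transporter, had a line difference of 1.05 ± 0.17 (A375 -0.22, A2058 -1.27, adjusted p = 2.4e-04). TAP1 in A375 moved by 0.39 ± 0.14 with KD1 and -0.83 ± 0.14 with KD2. PSMB10, an immunoproteasome subunit, differed by 0.91 ± 0.19 between the lines (A375 1.25, A2058 0.34, adjusted p = 0.0015). PSMB9, another immunoproteasome subunit, responded by 0.46 in A375 and -0.39 in A2058, a difference of 0.85 ± 0.21 (adjusted p = 0.0042), and 0.55 with KD1 alone, where it was not called.

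Inflammatory factors and cytokines under NF-kB were called in different numbers with each hairpin. The NF-kB factors, cytokines and chemokines list had 25 tested members of 30 in the table, of which 7 (28%) were higher in A375, 5 (20%) lower, and 13 did not pass. Across the 25 the median difference was -0.21, from 0.10 in A375 and 0.28 in A2058. For NF-kB factors, cytokines and chemokines, the median and the larger count of calls differed in direction, but not under quantile normalization. NF-kB factors, cytokines and chemokines had a median of -0.24, with 7 higher and 8 lower, under quantile normalization. Without both A375 libraries of lowest depth, 8 rather than 5 of the NF-kB factors, cytokines and chemokines were lower. There were 11 higher and 5 lower with KD1 alone and 4 higher and 12 lower with KD2 alone, and the lower count rose to 8 without A375 KD2 library 1. CXCL10, an interferon-inducible chemokine, had a line difference of 1.54 ± 0.29 (A375 -0.30, A2058 -1.84, adjusted p = 6.8e-04). CXCL10 in A375 moved by 0.68 ± 0.24 with KD1 and -1.27 ± 0.24 with KD2. IL11, a cytokine of the IL6 family, differed by -1.50 ± 0.18 between the lines (A375 -1.01, A2058 0.49, adjusted p = 1.1e-05). IL11 differed by -0.69 with KD1 and -2.31 with KD2, and in A2058 it moved by -0.98 ± 0.14 with KD1 and 1.97 ± 0.14 with KD2. IL24, a cytokine of the IL10 family, responded by -0.58 in A375 and 0.71 in A2058, a difference of -1.28 ± 0.19 (adjusted p = 8.3e-05). IL24 in A375 moved by -1.57 ± 0.15 with KD1 and 0.42 ± 0.15 with KD2, and in A2058 by -0.68 ± 0.15 and 2.10 ± 0.15.

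**Figure D4:**
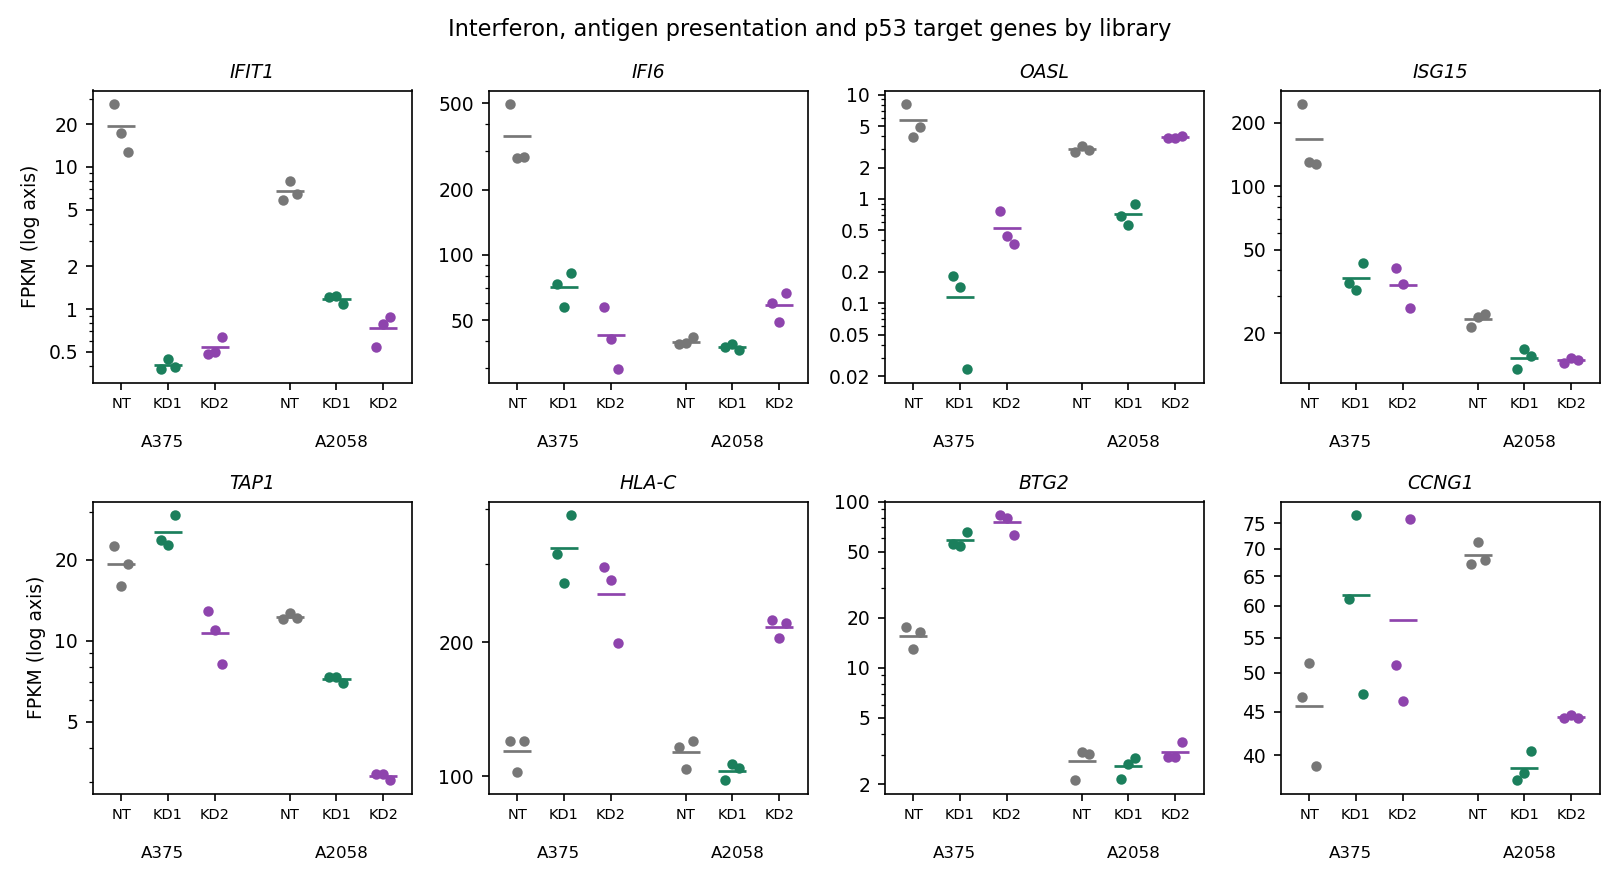
FPKM on a log axis (y) of 8 interferon, antigen presentation and p53 target genes in the 18 libraries, by line and arm (x), with points for libraries and a short line for the mean of 3. IFIT1 falls in both lines, IFI6 falls in A375 alone by the calls, and BTG2 rises in A375 with all 6 knockdown libraries above the controls.

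Genes of the entry into S phase and of DNA replication fell in A375, and most of the line difference came with KD1. Of 35 G1/S and DNA replication genes in the table, 35 were tested, and 0 (0%) were higher in A375, 30 (85.7%) lower, and 5 did not pass. G1/S and DNA replication genes had a median difference of -0.71, from medians of -0.85 in A375 and -0.056 in A2058. Within A375 30 fell and none rose, and within A2058 13 fell and 8 rose. The median difference was -1.72 with KD1 and 0.21 with KD2, with 0 higher and 34 lower with KD1 alone and 10 higher and 1 lower with KD2 alone. The line difference itself differed between hairpins at 34 of the 35. Of 30 promoters found, 14 (46.7%) held an E2F motif (TTTCCCGC, TTTCGCGC, TTTGCCGC or TTTGGCGC, either strand), against 2.79% of all 27305. Of 26 lower ones, 12 held it. The 250 bases before the start of MCM6 (chr2:135876444-135876693, minus strand, RefSeq, GRCh38.p14) are shown because MCM6 is among the largest changes of the list. Its 4 matches, in capitals, overlap one another.
MCM6: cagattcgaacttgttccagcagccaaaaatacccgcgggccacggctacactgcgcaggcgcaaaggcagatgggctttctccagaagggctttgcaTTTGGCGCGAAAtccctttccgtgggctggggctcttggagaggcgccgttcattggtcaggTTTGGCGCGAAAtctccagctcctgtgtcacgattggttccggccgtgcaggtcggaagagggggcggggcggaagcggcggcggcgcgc

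MCM6, a subunit of the replicative helicase, had FPKM values of 11.4, 13.6 and 14.01 in the controls, 2.57, 3.06 and 2.33 in KD1 and 7.08, 8.18 and 9.08 in KD2 of A375. The MCM6 values in A2058 were 32.4, 32.6 and 31.4 in the controls, 42.1, 42.7 and 44.5 in KD1 and 21.8, 23.5 and 21.9 in KD2. For MCM6, all 6 A375 knockdown libraries lay below the 3 controls, and the A2058 KD1 libraries lay above the controls and those of KD2 below them. The MCM6 response was -1.38 ± 0.088 in A375 and -0.046 ± 0.088 in A2058, a line difference of -1.33 ± 0.12 (adjusted p = 1.6e-06). MCM6 in A2058 moved by 0.42 ± 0.10 with KD1 and -0.51 ± 0.10 with KD2. The MCM6 difference was -2.52 with KD1 and -0.14 with KD2, the latter not called. CDC6, which loads the helicase onto origins, differed by -1.28 ± 0.12 between the lines (A375 -1.34, A2058 -0.056, adjusted p = 1.5e-06), with values of -2.35 with KD1 and -0.22 with KD2, the latter not called. CDC6 in A2058 moved by 0.29 ± 0.097 with KD1 and -0.41 ± 0.097 with KD2. MCM10, a factor of origin firing, responded by -1.58 in A375 and -0.29 in A2058, a difference of -1.29 ± 0.17 (adjusted p = 2.6e-05), with values of -2.27 with KD1 and -0.31 with KD2, the latter not called. RRM2, a subunit of ribonucleotide reductase, had FPKM values of 26.03, 31.1 and 35.6 in the controls, 5.19, 6.08 and 3.57 in KD1 and 19.9, 20.1 and 19.5 in KD2 of A375. In A2058 RRM2 stood at 16.7, 16.8 and 15.4 in the controls, 14.8, 12.8 and 13.7 in KD1 and 11.7, 10.6 and 10.04 in KD2. Its difference was -2.31 with KD1 and -0.037 with KD2.

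Genes of mitosis fell in both lines in most members. The G2/M and mitosis genes list had 31 tested members of 32 in the table, of which 3 (9.68%) were higher in A375, 7 (22.6%) lower, and 21 did not pass. The medians were -1.05 in A375 and -0.75 in A2058, with a median difference of -0.23. G2/M and mitosis genes had a median of -0.042, with 4 higher and 5 lower, under quantile normalization, and of -0.27, with 3 higher and 13 lower, with limma-voom. Without both A375 libraries of lowest depth, 3 rather than 7 of the G2/M and mitosis genes were lower. Within A375 27 fell and in A2058 23. There were 0 higher and 17 lower with KD1 alone and 12 higher and 1 lower with KD2 alone. Without A375 KD2 library 3 the counts were 8 higher and 15 lower, the lower count was 4 without A375 control library 2, and it was 11 without A375 KD1 library 2. MKI67, the proliferation antigen, had FPKM values of 8.34, 12.3 and 9.97 in the controls, 1.597, 1.52 and 0.719 in KD1 and 3.34, 3.28 and 4.99 in KD2 of A375. The MKI67 values in A2058 were 15.9, 17.1 and 15.2 in the controls, 7.51, 7.505 and 7.44 in KD1 and 8.398, 10.1 and 8.404 in KD2. For MKI67, all 12 knockdown libraries lay below the controls of their line. The MKI67 response was -1.96 ± 0.16 in A375 and -0.93 ± 0.16 in A2058, a line difference of -1.03 ± 0.23 (adjusted p = 0.0023). MKI67 differed by -1.56 with KD1 and -0.49 with KD2, the latter not called. KIF11, a spindle motor, differed by -1.16 ± 0.36 between the lines (A375 -1.48, A2058 -0.32, adjusted p = 0.015), and was not called with KD2 alone (-0.54). ANLN, the scaffold of the contractile ring, differed by -1.21 ± 0.45, but its call (adjusted p = 0.037) was lost in 13 of 18 fits that each left out 1 library, at -1.26 to -1.05, and was kept without A375 control library 3, A375 KD1 library 2, A375 KD2 library 3, A2058 KD1 library 2, A2058 KD2 library 2. The call of CENPF, a kinetochore protein (-1.03 ± 0.39, adjusted p = 0.042), was lost in 15 of them, at -1.09 to -0.85, and kept without A375 control library 3, A375 KD1 library 2, A375 KD2 library 3.

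Brakes of the cell cycle divided. Of 15 CDK inhibitors, pocket proteins and D cyclins in the table, 13 were tested, and 2 (15.4%) were higher in A375, 4 (30.8%) lower, and 7 did not pass. Their median difference was -0.12, with median responses of -0.045 in A375 and 0.33 in A2058. CDK inhibitors, pocket proteins and D cyclins had a median of -0.25, with 2 higher and 4 lower, with the length trend removed. There were 1 higher and 8 lower with KD1 alone and 5 higher and 2 lower with KD2 alone. CDKN1B, the CDK inhibitor p27, had FPKM values of 13.4, 11.4 and 13.2 in the controls, 24.5, 27.6 and 26.1 in KD1 and 28.6, 35.4 and 38.4 in KD2 of A375. The CDKN1B values in A2058 were 15.6, 15.8 and 15.2 in the controls, 20.5, 18.7 and 21.2 in KD1 and 25.6, 23.7 and 23.7 in KD2. For CDKN1B, all 12 knockdown libraries lay above the controls of their line. With 1.20 ± 0.087 in A375 and 0.50 ± 0.087 in A2058, CDKN1B gave a line difference of 0.70 ± 0.12 (adjusted p = 3.4e-04). CDK6, the partner kinase of the D cyclins, had a line difference of -1.60 ± 0.28 (A375 0.23, A2058 1.83, adjusted p = 3.6e-04). RBL1, the pocket protein p107, differed by -1.19 ± 0.28 between the lines (A375 -0.86, A2058 0.33, adjusted p = 0.0035), and was not called with KD2 alone (-0.64). RB1, the retinoblastoma protein, was at the threshold (-0.70 ± 0.28, adjusted p = 0.05), and its call was lost in 15 of 18 fits without 1 library, at -0.77 to -0.59, and kept without A375 control library 3, A375 KD1 library 2, A375 KD2 library 3.

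Targets of p53, which arrests the cycle or starts apoptosis after stress, rose at 16 of 29 in A375 and at 10 in A2058. The p53 targets list had 29 tested members of 31 in the table, of which 11 (37.9%) were higher in A375, 5 (17.2%) lower, and 13 did not pass. Median responses were 0.36 in A375 and 0.054 in A2058, and the median difference was 0.34. It was 0.16, with 11 higher and 7 lower, under quantile normalization. Another 3 fell in A375 and 7 in A2058. The lower count was 2 without A375 control library 1. BTG2, an antiproliferative p53 target, had FPKM values of 17.6, 12.9 and 16.3 in the controls, 55.4, 53.8 and 65.9 in KD1 and 83.3, 79.6 and 63.2 in KD2 of A375. The BTG2 values in A2058 were 2.11, 3.11 and 3.02 in the controls, 2.14, 2.66 and 2.88 in KD1 and 2.89, 2.91 and 3.57 in KD2. For BTG2, all 6 A375 knockdown libraries lay above the 3 controls, and both A2058 knockdown arms overlapped the controls. With 2.06 ± 0.13 in A375 and 0.046 ± 0.13 in A2058, BTG2 gave a line difference of 2.01 ± 0.19 (adjusted p = 1.6e-06). CCNG1, cyclin G1, a p53 target, had a line difference of 1.09 ± 0.21 (A375 0.36, A2058 -0.73, adjusted p = 6.8e-04). FDXR, ferredoxin reductase, a mitochondrial p53 target, differed by 1.00 ± 0.20 between the lines (A375 0.68, A2058 -0.32, adjusted p = 8.3e-04). CDKN1A, the CDK inhibitor p21, had FPKM values of 233, 206 and 242 in the controls, 513, 469.9 and 694 in KD1 and 104, 91.5 and 70.3 in KD2 of A375. In A2058 CDKN1A stood at 45.3, 42.6 and 43.9 in the controls, 164, 159 and 151 in KD1 and 13.4, 11.7 and 15.7 in KD2. Its line difference was -0.13 ± 0.18 (adjusted p = 0.58), that of MDM2, the ubiquitin ligase of p53, -0.24 ± 0.23 (adjusted p = 0.42).

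The ATF4 program, which answers amino acid shortage and protein stress, fell in both lines in most members, and 17 of 27 had a lower response in A375. Of 31 ATF4 program genes in the table, 27 were tested, and 3 (11.1%) were higher in A375, 17 (62.96%) lower, and 7 did not pass. ATF4 program genes had median responses of -0.95 in A375 and -0.55 in A2058 and a median difference of -0.56. Within A375 23 fell and 1 rose, and within A2058 16 fell and 4 rose. There were 1 higher and 17 lower with KD1 alone and 4 higher and 14 lower with KD2 alone. The motif TGATGNAA on either strand was in 2 of 22 promoters found (9.09%, against 3.19% of all), those of ATF3 and CHAC1. DDIT3, the stress factor CHOP, had FPKM values of 37.6, 26.9 and 35.5 in the controls, 4.41, 6.16 and 6.62 in KD1 and 5.598, 8.19 and 7.54 in KD2 of A375. The DDIT3 values in A2058 were 11.3, 9.72 and 11.6 in the controls, 7.99, 6.15 and 7.24 in KD1 and 16.3, 14.8 and 16.4 in KD2. For DDIT3, all 6 A375 knockdown libraries lay below the 3 controls, and the A2058 KD1 libraries lay below the controls and those of KD2 above them. With -2.30 ± 0.14 in A375 and -0.028 ± 0.14 in A2058, DDIT3 gave a line difference of -2.27 ± 0.20 (adjusted p = 8.3e-07). DDIT3 in A2058 moved by -0.58 ± 0.16 with KD1 and 0.52 ± 0.16 with KD2. ATF3, a stress-induced factor of the ATF family, had a line difference of -1.65 ± 0.19 (A375 -2.58, A2058 -0.93, adjusted p = 8.5e-06). MTHFD2, a mitochondrial enzyme of folate metabolism, had FPKM values of 23.98, 24.2 and 22.2 in the controls, 11.1, 11.8 and 9.35 in KD1 and 15.7, 15.01 and 17.1 in KD2 of A375. The MTHFD2 values in A2058 were 14.4, 14.4 and 15.5 in the controls, 20.8, 20 and 19.6 in KD1 and 25.5, 24.4 and 23.4 in KD2. For MTHFD2, all 6 A375 knockdown libraries lay below their 3 controls, and all 6 of A2058 above theirs. Between the lines MTHFD2 differed by -1.39 ± 0.10 (adjusted p = 2.1e-07), with -0.82 ± 0.073 in A375 and 0.57 ± 0.073 in A2058. CHAC1, which degrades glutathione, responded by -2.13 in A375 and -0.75 in A2058, a difference of -1.38 ± 0.22 (adjusted p = 1.9e-04). ASNS, asparagine synthetase, was not tested, since its highest FPKM in the 18 libraries was 0.468. TRIB3, a pseudokinase that restrains ATF4, had -1.29 ± 0.11 and -0.72 ± 0.11, a difference of -0.56 ± 0.15 (adjusted p = 0.007).

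Aminoacyl-tRNA synthetases, which charge tRNAs and include ATF4 targets, differed in few members. The cytosolic aminoacyl-tRNA synthetases list had 20 tested members of 20 in the table, of which 2 (10%) were higher in A375, 5 (25%) lower, and 13 did not pass. Across the 20 the median difference was -0.21, from -0.57 in A375 and -0.17 in A2058. Cytosolic aminoacyl-tRNA synthetases had a median of -0.33, with 2 higher and 5 lower, under quantile normalization. The lower count was 9 without A375 KD2 library 3, and also without A375 KD1 library 2. QARS1, the glutaminyl synthetase, had a line difference of 1.06 ± 0.17 (A375 0.98, A2058 -0.080, adjusted p = 1.7e-04). TARS1, the threonyl synthetase, differed by -0.85 ± 0.26 between the lines (A375 -0.92, A2058 -0.065, adjusted p = 0.014), and was not called with KD1 alone (-0.72). WARS1, the tryptophanyl synthetase and an interferon-induced gene, had FPKM values of 214, 227 and 218 in the A2058 controls, 34.7, 33.2 and 34.98 in KD1 and 228, 233 and 219.8 in KD2. All 3 KD1 libraries of WARS1 lay far below the others. Its line difference of 0.76 ± 0.15 was 1.74 with KD1 and -0.23 with KD2.

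Chaperones of the endoplasmic reticulum and targets of the unfolded protein response fell at 10 of 23 in A375 and rose at 7 in A2058. Of all genes tested, 30.4% fell in A375 and 24.9% rose in A2058. Of 24 chaperones and unfolded protein response genes in the table, 23 were tested, and 2 (8.696%) were higher in A375, 8 (34.8%) lower, and 13 did not pass. Chaperones and unfolded protein response genes had a median difference of -0.22, from medians of -0.12 in A375 and 0.11 in A2058. Chaperones and unfolded protein response genes had a median of -0.35, with 2 higher and 12 lower, under quantile normalization. The lower count was 5 without A375 control library 2. HSPA5, the chaperone BiP, responded by -0.60 in A375 and 0.085 in A2058, a difference of -0.69 ± 0.088 (adjusted p = 2.6e-05). HSPA5 in A2058 moved by 0.44 ± 0.072 with KD1 and -0.27 ± 0.072 with KD2. DNAJB9, a co-chaperone of BiP, had a line difference of -0.82 ± 0.25 (A375 0.15, A2058 0.97, adjusted p = 0.015), and -0.34 with KD1 alone, where it was not called. EDEM1, which sends misfolded glycoproteins to degradation, differed by -0.69 ± 0.13 between the lines (A375 -0.85, A2058 -0.15, adjusted p = 7.2e-04). The call of HSP90B1, the chaperone GRP94 (-0.87 ± 0.31, adjusted p = 0.032), was lost in 7 of 18 fits without 1 library, at -0.90 to -0.76, those without any of the A2058 controls, A375 control library 1 or 2, A375 KD1 library 3 or A375 KD2 library 2.

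Cytosolic heat shock proteins, chaperones under the factor HSF1, had a lower response in A375 at 13 of 21. The heat shock genes list had 21 tested members of 23 in the table, of which 0 (0%) were higher in A375, 13 (61.9%) lower, and 8 did not pass. The medians were -0.44 in A375 and 0.040 in A2058, with a median difference of -0.57. There were 4 higher and 5 lower with KD1 alone and 0 higher and 14 lower with KD2 alone. Of 19 promoters found, 7 (36.8%) held GAANNTTC, which reads the same on both strands, against 5.85% of all 27305. The 250 bases before the start of HSPA6 (chr1:161524290-161524539, plus strand, RefSeq, GRCh38.p14) are shown because its line difference changed sign with the hairpin, with the matches in capitals.
HSPA6: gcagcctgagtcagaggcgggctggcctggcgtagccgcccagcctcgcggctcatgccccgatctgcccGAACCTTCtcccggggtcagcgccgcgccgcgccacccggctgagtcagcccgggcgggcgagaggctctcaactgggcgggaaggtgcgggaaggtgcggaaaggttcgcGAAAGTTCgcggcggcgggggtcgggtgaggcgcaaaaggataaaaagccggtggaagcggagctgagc

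HSPA6, a stress-inducible HSP70 with almost no basal expression, had FPKM values of 1.38, 1.24 and 1.79 in the controls, 8.59, 8.75 and 12.4 in KD1 and 2.02, 1.34 and 1.18 in KD2 of A375. The HSPA6 values in A2058 were 1.82, 2.404 and 1.38 in the controls, 7.08, 7.32 and 6.06 in KD1 and 54.6, 46.1 and 63.8 in KD2. For HSPA6, the A375 KD1 libraries lay above the controls and those of KD2 overlapped them, and all 6 A2058 knockdown libraries lay above the 3 controls. With 1.20 ± 0.17 in A375 and 3.10 ± 0.17 in A2058, HSPA6 gave a line difference of -1.90 ± 0.23 (adjusted p = 1.7e-05). The HSPA6 difference was 0.75 with KD1 and -4.54 with KD2, so its direction depends on the hairpin. HSPH1, a co-chaperone of HSP70, had a line difference of -1.54 ± 0.29 (A375 -1.53, A2058 0.0018, adjusted p = 6.3e-04). HSP90AA1, the inducible HSP90, differed by -1.26 ± 0.36 between the lines (A375 -1.33, A2058 -0.071, adjusted p = 0.01), and -0.74 with KD1 alone, where it was not called. HSPA4, an HSP70 relative that exchanges its nucleotide, responded by -0.52 in A375 and 0.65 in A2058, a difference of -1.17 ± 0.26 (adjusted p = 0.0019).

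Most cytosolic ribosomal protein genes rose in A375, and 73 of 78 had a higher response there than in A2058. Of 78 cytosolic ribosomal protein genes in the table, 78 were tested, and 73 (93.6%) were higher in A375, 0 (0%) lower, and 5 did not pass. Their median line difference was 0.80, with median responses of 0.65 in A375 and -0.14 in A2058. Within A375 67 rose and 3 fell, and within A2058 2 rose and 19 fell, with 10 called in opposite directions. There were 61 higher and 0 lower with KD1 alone and 70 higher and 0 lower with KD2 alone. These genes are short, with a median length -0.69 below that of all genes on the log2 scale, as a signed difference. With the length trend removed 71 were higher and 0 lower, with a median of 0.70. Quantile normalization gave 65 higher and 1 lower, with a median of 0.46. Many of these genes have processed pseudogenes that can share reads, so single values are uncertain. RPS28, a protein of the small subunit, had FPKM values of 173, 155 and 185 in the controls, 220.4, 212 and 254 in KD1 and 314, 285 and 201 in KD2 of A375. The RPS28 values in A2058 were 76.1, 64.8 and 74.2 in the controls, 54.9, 50.3 and 52.9 in KD1 and 29.6, 27.2 and 23.6 in KD2. For RPS28, all 6 A375 knockdown libraries lay above their 3 controls, and all 6 of A2058 below theirs. The RPS28 response was 0.52 ± 0.12 in A375 and -0.92 ± 0.12 in A2058, a line difference of 1.44 ± 0.17 (adjusted p = 1.2e-05). RPL13A, a protein of the large subunit, differed by 1.17 ± 0.18 between the lines (A375 1.02, A2058 -0.15, adjusted p = 1.0e-04). RPL3, a protein at the catalytic centre, responded by 0.78 in A375 and -0.48 in A2058, a difference of 1.26 ± 0.15 (adjusted p = 1.1e-05). RPL10, a late-joining protein of the large subunit, had a line difference of 1.33 ± 0.18 (A375 0.86, A2058 -0.47, adjusted p = 4.0e-05).

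Factors that build ribosomes, many of them MYC targets, fell in A375 in most of those called. The MYC network and ribosome biogenesis genes list had 35 tested members of 36 in the table, of which 5 (14.3%) were higher in A375, 12 (34.3%) lower, and 18 did not pass. Median responses were -0.35 in A375 and -0.14 in A2058, and the median difference was -0.13. Within A375 19 fell and 3 rose. The higher count was 2 without A2058 control library 3 or without A375 control library 1. NOP58, a core protein of the small nucleolar particles that methylate ribosomal RNA, differed by -1.24 ± 0.29 between the lines (A375 -1.27, A2058 -0.026, adjusted p = 0.0029). WDR43, a factor of small subunit assembly, responded by -1.14 in A375 and 0.070 in A2058, a difference of -1.21 ± 0.26 (adjusted p = 0.0015). UTP20, another factor of small subunit assembly, had a line difference of -0.91 ± 0.25 (A375 -0.90, A2058 0.019, adjusted p = 0.0072), and was not called with KD1 alone (-0.74). GNL3, the nucleolar GTPase nucleostemin, differed by -0.81 ± 0.28 (adjusted p = 0.027), and its call was lost without A2058 control library 1 (-0.78) or A2058 control library 3 (-0.81) or A375 control library 2 (-0.73). MYC, the factor that drives this program, had -0.75 ± 0.12 in A375 and -0.56 ± 0.12 in A2058, a difference of -0.19 ± 0.16 (adjusted p = 0.34).

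Nuclear genes of oxidative phosphorylation rose in A375 in most members. Of 77 nuclear oxidative phosphorylation genes in the table, 75 were tested, and 39 (52%) were higher in A375, 0 (0%) lower, and 36 did not pass. Nuclear oxidative phosphorylation genes had median responses of 0.38 in A375 and -0.051 in A2058 and a median difference of 0.41. Within A375 49 rose and 1 fell, and within A2058 9 rose and 7 fell. There were 12 higher and 0 lower with KD1 alone and 48 higher and 0 lower with KD2 alone. These genes too are short, with a median log2 length of -1.04 relative to all genes, and with the length trend removed 35 were higher and 1 lower, at a median of 0.29. The part of length in these results was not tested beyond that. ATP5MC2, a subunit of the rotor ring of ATP synthase, with near-identical copies, differed by 1.17 ± 0.18 between the lines (A375 0.38, A2058 -0.79, adjusted p = 9.7e-05). COX8A, a subunit of cytochrome oxidase, responded by 0.58 in A375 and -0.26 in A2058, a difference of 0.84 ± 0.20 (adjusted p = 0.0039), and was not called with KD1 alone (0.50). NDUFS7, an iron-sulphur subunit of complex I, had a line difference of 0.81 ± 0.19 (A375 0.55, A2058 -0.26, adjusted p = 0.0034). NDUFA13, an accessory subunit of complex I, differed by 0.81 ± 0.21 between the lines (A375 0.78, A2058 -0.030, adjusted p = 0.0064), and was not called with KD1 alone (0.63).

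Fatty acid oxidation and the citric acid cycle hold many known SIRT5 substrates. The fatty acid oxidation and citric acid cycle genes list had 36 tested members of 37 in the table, of which 13 (36.1%) were higher in A375, 0 (0%) lower, and 23 did not pass. Across the 36 the median difference was 0.24, from 0.044 in A375 and -0.28 in A2058. Without A375 KD2 library 3 the higher count was 20. ACADS, the dehydrogenase for short acyl chains, had FPKM values of 3.25, 2.78 and 3.14 in the controls, 8.11, 7.47 and 10.99 in KD1 and 6.196, 5.401 and 4.06 in KD2 of A375. The ACADS values in A2058 were 3.86, 4.298 and 5.46 in the controls, 3.91, 5.13 and 5.13 in KD1 and 1.79, 2.23 and 2.18 in KD2. For ACADS, all 6 A375 knockdown libraries lay above the 3 controls, and the A2058 KD2 libraries lay below the controls and those of KD1 overlapped them. With 1.02 ± 0.14 in A375 and -0.46 ± 0.14 in A2058, ACADS gave a line difference of 1.48 ± 0.20 (adjusted p = 4.5e-05). ACADVL, the dehydrogenase for very long chains, had a line difference of 1.02 ± 0.15 (A375 0.81, A2058 -0.20, adjusted p = 6.9e-05). ECI1, an isomerase for unsaturated chains, differed by 0.97 ± 0.17 between the lines (A375 0.69, A2058 -0.28, adjusted p = 4.4e-04), and was not called with KD1 alone (0.47). ETFB, a subunit of the flavoprotein that takes up the electrons, responded by 0.90 in A375 and -0.041 in A2058, a difference of 0.94 ± 0.17 (adjusted p = 3.6e-04). Of 22 sirtuin and NAD metabolism genes in the table, 17 were tested, and 6 (35.3%) were higher in A375, 1 (5.88%) lower, and 10 did not pass. Sirtuin and NAD metabolism genes had a median difference of 0.046, from medians of 0.20 in A375 and -0.34 in A2058. Sirtuin and NAD metabolism genes had a median of -0.073, with 6 higher and 2 lower, with limma-voom. NAPRT, which makes NAD from nicotinic acid, had a line difference of 1.10 ± 0.16 (A375 0.54, A2058 -0.56, adjusted p = 5.7e-05). SIRT2, a mainly cytosolic deacetylase, differed by 0.89 ± 0.16 between the lines (A375 0.44, A2058 -0.45, adjusted p = 4.8e-04). NADK, the NAD kinase, responded by 0.36 in A375 and -0.34 in A2058, a difference of 0.70 ± 0.14 (adjusted p = 9.2e-04). SIRT4, a mitochondrial sirtuin, did not pass the test at 0.66 ± 0.31 (adjusted p = 0.09), but passed without A375 control library 3 (0.89) and without A375 KD2 library 3 (0.79).

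Glycolysis, the conversion of glucose to pyruvate and lactate, fell in A2058 in most members. The glycolysis and lactate genes list had 25 tested members of 25 in the table, of which 11 (44%) were higher in A375, 3 (12%) lower, and 11 did not pass. The medians were 0.033 in A375 and -0.37 in A2058, with a median difference of 0.39. Glycolysis and lactate genes had a median of 0.14, with 12 higher and 6 lower, under quantile normalization. Without both A375 libraries of lowest depth, 7 rather than 11 of the glycolysis and lactate genes were higher. Within A2058 15 fell and 2 rose, and within A375 8 fell and 7 rose. SLC16A3, the lactate exporter MCT4, had FPKM values of 2.33, 1.78 and 2.41 in the controls, 8.297, 7.36 and 10.2 in KD1 and 7.72, 7.97 and 5.92 in KD2 of A375. The SLC16A3 values in A2058 were 15.2, 11.8 and 14.4 in the controls, 15.8, 15.7 and 15.4 in KD1 and 12.8, 12.4 and 13.3 in KD2. For SLC16A3, all 6 A375 knockdown libraries lay above the 3 controls, and the A2058 KD1 libraries lay above the controls and those of KD2 overlapped them. The SLC16A3 response was 1.64 ± 0.12 in A375 and 0.046 ± 0.12 in A2058, a line difference of 1.60 ± 0.16 (adjusted p = 3.3e-06). HK2, the inducible hexokinase, differed by -1.35 ± 0.13 between the lines (A375 -0.93, A2058 0.42, adjusted p = 2.2e-06). ALDOC, an aldolase, responded by -0.81 in A375 and -2.08 in A2058, a difference of 1.26 ± 0.24 (adjusted p = 6.0e-04). PGD, an enzyme of the pentose phosphate pathway, had a line difference of 1.22 ± 0.14 (A375 0.36, A2058 -0.86, adjusted p = 9.7e-06).

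Of 31 hypoxia response genes in the table, 28 were tested, and 10 (35.7%) were higher in A375, 7 (25%) lower, and 11 did not pass. Their median difference was 0.042, with median responses of -0.16 in A375 and -0.13 in A2058. The higher count was 6 without A2058 control library 3. HIF1A, the oxygen-sensitive subunit of the hypoxia factor, differed by -1.29 ± 0.34 between the lines (A375 -1.43, A2058 -0.13, adjusted p = 0.0058). ADM, adrenomedullin, a vasodilator peptide, responded by -0.77 in A375 and 0.16 in A2058, a difference of -0.93 ± 0.23 (adjusted p = 0.0045), and was not called with KD2 alone (-0.57). ADM in A2058 moved by 0.88 ± 0.19 with KD1 and -0.56 ± 0.19 with KD2. VEGFA, the angiogenic growth factor, had a line difference of -0.54 ± 0.12 (adjusted p = 0.0022).

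Genes of cholesterol synthesis and uptake had a higher response in A375 at 15 of 26, beside 24.6% of all genes. The cholesterol genes list had 26 tested members of 30 in the table, of which 15 (57.7%) were higher in A375, 2 (7.69%) lower, and 9 did not pass. Median responses were 0.061 in A375 and -0.41 in A2058, and the median difference was 0.60. Within A2058 14 fell and none rose, and within A375 8 fell and 7 rose. There were 9 higher and 3 lower with KD1 alone and 17 higher and 1 lower with KD2 alone. The motif TCACNCCAC on either strand was in 1 of 20 promoters (5.0%, against 0.875% of all), that of SREBF2. MVD, mevalonate diphosphate decarboxylase, had FPKM values of 5.29, 4.32 and 4.58 in the controls, 6.39, 6.71 and 8.07 in KD1 and 9.27, 9.62 and 7.63 in KD2 of A375. The MVD values in A2058 were 10.8, 8.49 and 10.2 in the controls, 6.61, 8.09 and 8.55 in KD1 and 3.73, 4.77 and 3.64 in KD2. For MVD, all 6 A375 knockdown libraries lay above the 3 controls, and the A2058 KD2 libraries lay below the controls and those of KD1 overlapped them. The MVD response was 0.68 ± 0.12 in A375 and -0.75 ± 0.12 in A2058, a line difference of 1.44 ± 0.16 (adjusted p = 9.5e-06). LSS, lanosterol synthase, differed by 1.20 ± 0.16 between the lines (A375 0.55, A2058 -0.66, adjusted p = 2.7e-05). FDPS, farnesyl diphosphate synthase, responded by 0.25 in A375 and -0.73 in A2058, a difference of 0.98 ± 0.15 (adjusted p = 1.4e-04), and was not called with KD1 alone (0.19). Of 18 fatty acid synthesis and desaturation genes in the table, 16 were tested, and 5 (31.2%) were higher in A375, 4 (25%) lower, and 7 did not pass. Fatty acid synthesis and desaturation genes had median responses of -0.38 in A375 and -0.28 in A2058 and a median difference of 0.051. Fatty acid synthesis and desaturation genes had a median of 0.20, with 6 higher and 4 lower, under quantile normalization. ACSS2, which makes acetyl-CoA from acetate, had FPKM values of 7.59, 6.07 and 7.44 in the controls, 22.5, 18.8 and 24.4 in KD1 and 20.2, 18.6 and 13.3 in KD2 of A375. The ACSS2 values in A2058 were 6.08, 6.398 and 6.34 in the controls, 6.11, 5.91 and 6.05 in KD1 and 5.03, 4.51 and 5.38 in KD2. For ACSS2, all 6 A375 knockdown libraries lay above the 3 controls, and the A2058 KD2 libraries lay below the controls and those of KD1 overlapped them. The ACSS2 response was 1.40 ± 0.12 in A375 and -0.18 ± 0.12 in A2058, a line difference of 1.58 ± 0.16 (adjusted p = 3.6e-06). SCD, the stearoyl-CoA desaturase, differed by 1.01 ± 0.12 between the lines (A375 -0.72, A2058 -1.73, adjusted p = 8.4e-06). ACSL3, a ligase that activates long-chain fatty acids, responded by -0.69 in A375 and 0.38 in A2058, a difference of -1.07 ± 0.27 (adjusted p = 0.0053), and was not called with KD1 alone (-0.47). ACSL4, a ligase for polyunsaturated chains, differed by -1.11 ± 0.34 (adjusted p = 0.016), and its call was lost without A375 control library 2 (-0.95) and with KD1 alone (-0.70).

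NRF2 targets, the antioxidant and iron storage genes, fell in A2058 in most members. The NRF2 targets list had 22 tested members of 28 in the table, of which 11 (50%) were higher in A375, 1 (4.54%) lower, and 10 did not pass. Across the 22 the median difference was 0.31, from -0.11 in A375 and -0.47 in A2058. NRF2 targets had a median of 0.20, with 9 higher and 2 lower, with the length trend removed. Within A2058 14 fell and 2 rose. NQO1, the quinone reductase, had FPKM values of 124, 118 and 151 in the controls, 89.5, 83.4 and 92.2 in KD1 and 173, 155 and 116 in KD2 of A375. The NQO1 values in A2058 were 323, 323 and 324 in the controls, 125, 116 and 132 in KD1 and 132, 133 and 128 in KD2. For NQO1, the A375 KD1 libraries lay below the controls and those of KD2 overlapped them, and all 6 A2058 knockdown libraries lay below the 3 controls. The NQO1 response was -0.20 ± 0.10 in A375 and -1.34 ± 0.10 in A2058, a line difference of 1.14 ± 0.15 (adjusted p = 2.7e-05). FTL, the ferritin light chain, differed by 1.17 ± 0.18 (adjusted p = 1.1e-04), but by -0.06 under quantile normalization, where it was not called and the direction flipped. SLC48A1, a haem transporter, differed by 1.19 ± 0.17 between the lines (A375 0.63, A2058 -0.56, adjusted p = 7.0e-05). Of 36 lysosome and autophagy genes in the table, 34 were tested, and 15 (44.1%) were higher in A375, 3 (8.82%) lower, and 16 did not pass. Lysosome and autophagy genes had a median difference of 0.32, from medians of 0.49 in A375 and 0.17 in A2058. Lysosome and autophagy genes had a median of 0.21, with 15 higher and 4 lower, under quantile normalization. There were 24 higher and 1 lower with KD1 alone and 5 higher and 5 lower with KD2 alone. GAA, the acid glucosidase of lysosomes, responded by 0.20 in A375 and -1.26 in A2058, a difference of 1.46 ± 0.14 (adjusted p = 1.6e-06). GAA in A375 moved by 1.49 ± 0.11 with KD1 and -1.08 ± 0.11 with KD2. LIPA, the lysosomal acid lipase, had a line difference of 0.87 ± 0.088 (A375 0.83, A2058 -0.033, adjusted p = 3.2e-06). HEXA, a hexosaminidase subunit, differed by 0.83 ± 0.17 between the lines (A375 1.09, A2058 0.26, adjusted p = 9.5e-04), and was not called with KD2 alone (0.36). TPP1, a lysosomal peptidase, responded by 0.82 in A375 and 0.0029 in A2058, a difference of 0.82 ± 0.14 (adjusted p = 2.9e-04), and 0.034 with KD2 alone, where it was not called. TPP1 in A2058 moved by -0.38 ± 0.11 with KD1 and 0.39 ± 0.11 with KD2.

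Genes of the pigment cell lineage were compared because melanoma cells shift between pigmented and neural crest states. The pigment cell genes list had 17 tested members of 27 in the table, of which 8 (47.1%) were higher in A375, 4 (23.5%) lower, and 5 did not pass. The medians were 0.19 in A375 and -0.16 in A2058, with a median difference of 0.39. The lower count was 1 without A2058 control library 1. PMEL, the fibril protein of melanosomes, had FPKM values of 1.07, 0.653 and 0.7805 in the controls, 5.16, 4.22 and 6.11 in KD1 and 3.23, 1.79 and 1.59 in KD2 of A375. The PMEL values in A2058 were 213, 210.4 and 228 in the controls, 138, 137 and 151 in KD1 and 191, 182 and 180.2 in KD2. For PMEL, all 6 A375 knockdown libraries lay above their 3 controls, and all 6 of A2058 below theirs. The PMEL response was 1.53 ± 0.15 in A375 and -0.42 ± 0.15 in A2058, a line difference of 1.96 ± 0.21 (adjusted p = 5.8e-06). EDNRB, the endothelin receptor of melanoblasts, differed by 1.12 ± 0.099 between the lines (A375 2.11, A2058 0.99, adjusted p = 9.9e-07). CDK2, a cell cycle kinase that MITF controls, responded by 0.33 in A375 and -0.69 in A2058, a difference of 1.01 ± 0.12 (adjusted p = 1.5e-05). BCL2A1, an antiapoptotic MITF target, had a line difference of -1.04 ± 0.16 (A375 -1.05, A2058 -0.012, adjusted p = 1.5e-04), and was not called with KD1 alone (-0.41). MITF, the master factor of the lineage, did not pass at 0.28 ± 0.25 (A375 -0.94, A2058 -1.22, adjusted p = 0.38), but passed under quantile normalization at 0.61 (adjusted p = 0.028). Without 1 library at a time the MITF difference was 0.10 to 0.42. PAX3, a factor upstream of MITF, differed by -0.42 ± 0.15 (adjusted p = 0.026), and lost its call without A2058 control library 1 (-0.40) or A2058 control library 3 (-0.40) or A375 control library 2 (-0.39). S100B, a calcium-binding protein of the lineage, differed by -0.40 ± 0.14 (adjusted p = 0.027), and lost its call without A2058 control library 1 (-0.38) or A2058 control library 2 (-0.40) or A375 control library 3 (-0.32).

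Of 24 neural crest and EMT factors in the table, 20 were tested, and 5 (25%) were higher in A375, 4 (20%) lower, and 11 did not pass. Their median line difference was -0.040, with median responses of -0.39 in A375 and -0.23 in A2058. For neural crest and EMT factors, the median and the larger count of calls differed in direction, but not with limma-voom. NGFR, the low-affinity neurotrophin receptor of neural crest cells, had FPKM values of 7.56, 7.26 and 9.92 in the controls, 2.698, 2.22 and 2.76 in KD1 and 9.99, 8.02 and 6.19 in KD2 of A375. The NGFR values in A2058 were 5.33, 4.48 and 4.88 in the controls, 13.6, 14.2 and 13.9 in KD1 and 9.71, 9.78 and 13.2 in KD2. For NGFR, the A375 KD1 libraries lay below the controls and those of KD2 overlapped them, and all 6 A2058 knockdown libraries lay above the 3 controls. Between the lines NGFR differed by -2.02 ± 0.19 (adjusted p = 1.7e-06), with -0.77 ± 0.14 in A375 and 1.24 ± 0.14 in A2058. NGFR differed by -2.93 with KD1 and -1.11 with KD2. FN1, fibronectin, responded by 0.51 in A375 and -0.86 in A2058, a difference of 1.37 ± 0.12 (adjusted p = 1.3e-06). SNAI2, the zinc finger repressor SLUG, had a line difference of 1.33 ± 0.21 (A375 -0.52, A2058 -1.85, adjusted p = 1.4e-04), and 0.42 with KD2 alone, where it was not called. SNAI2 in A375 moved by 0.46 ± 0.17 with KD1 and -1.50 ± 0.17 with KD2. The receptors of melanoma state list had 13 tested members of 20 in the table, of which 1 (7.69%) were higher in A375, 5 (38.5%) lower, and 7 did not pass. Median responses were 0.18 in A375 and 0.15 in A2058, and the median difference was 0.029. For receptors of melanoma state, the median and the larger count of calls differed in direction, but not under quantile normalization. Receptors of melanoma state had a median of -0.15, with 2 higher and 6 lower, under quantile normalization. MET, the receptor of hepatocyte growth factor, differed by -1.21 ± 0.26 between the lines (A375 -0.0079, A2058 1.20, adjusted p = 0.0014). PLAUR, the urokinase receptor, responded by 0.18 in A375 and 1.36 in A2058, a difference of -1.18 ± 0.13 (adjusted p = 6.1e-06). AXL, a receptor kinase of dedifferentiated melanoma, had 0.23 ± 0.083 in A375 and 0.15 ± 0.083 in A2058, a difference of 0.079 ± 0.12 (adjusted p = 0.6).

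Genes switched on by the ERK pathway had a lower response in A375 at 18 of 39, beside 21.2% of all genes. Of 40 ERK outputs in the table, 39 were tested, and 6 (15.4%) were higher in A375, 18 (46.1%) lower, and 15 did not pass. ERK outputs had median responses of -0.062 in A375 and 0.30 in A2058 and a median difference of -0.21. ERK outputs had a median of -0.32, with 5 higher and 22 lower, under quantile normalization. Within A375 12 rose and 14 fell, and within A2058 21 rose and 9 fell, with 8 called in opposite directions. There were 7 higher and 15 lower with KD1 alone and 4 higher and 21 lower with KD2 alone. Of 29 promoters found, 1 (3.45%) held a CArG box, the motif of serum response factor, against 1.14% of all, and it was that of EGR1. Its 250 bases before the start (chr5:138465229-138465478, plus strand, RefSeq, GRCh38.p14) are shown for this reason, with the matches in capitals.
EGR1: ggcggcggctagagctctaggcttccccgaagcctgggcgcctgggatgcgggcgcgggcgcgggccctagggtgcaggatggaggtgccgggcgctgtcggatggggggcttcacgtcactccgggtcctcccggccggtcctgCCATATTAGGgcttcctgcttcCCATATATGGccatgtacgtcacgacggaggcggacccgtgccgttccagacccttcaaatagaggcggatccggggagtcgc

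EGR1, an immediate early zinc finger factor, had FPKM values of 128, 102 and 105 in the controls, 42.4, 30.5 and 39.2 in KD1 and 13.5, 11.6 and 11.7 in KD2 of A375. The EGR1 values in A2058 were 13.1, 12.7 and 11.6 in the controls, 15.1, 15.3 and 14.2 in KD1 and 4.77, 4.67 and 4.46 in KD2. For EGR1, all 6 A375 knockdown libraries lay below the 3 controls, and the A2058 KD1 libraries lay above the controls and those of KD2 below them. The EGR1 response was -2.35 ± 0.099 in A375 and -0.54 ± 0.099 in A2058, a line difference of -1.80 ± 0.14 (adjusted p = 2.6e-07). EGR1 in A2058 moved by 0.25 ± 0.11 with KD1 and -1.34 ± 0.11 with KD2. EGR2, its close relative, differed by -2.26 ± 0.21 between the lines (A375 -1.66, A2058 0.60, adjusted p = 1.6e-06). DUSP6, a phosphatase that ERK induces against itself, had 0.35 ± 0.059 in A375 and 0.94 ± 0.059 in A2058, a difference of -0.59 ± 0.084 (adjusted p = 6.1e-05). SPRY2, a feedback inhibitor of the pathway, had 0.048 ± 0.073 and 0.14 ± 0.073, a difference of -0.088 ± 0.10 (adjusted p = 0.5). FOSL1, an AP-1 subunit, had -1.17 ± 0.091 and 0.0091 ± 0.091, a difference of -1.18 ± 0.13 (adjusted p = 5.5e-06). FOSL1 in A2058 moved by 0.89 ± 0.10 with KD1 and -0.87 ± 0.10 with KD2.

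Targets of TGF-beta and of YAP, which respond to activin and to cell tension, had a lower response in A375 at 11 of 23, beside 21.2% of all genes. The TGF-beta and YAP targets list had 23 tested members of 28 in the table, of which 4 (17.4%) were higher in A375, 11 (47.8%) lower, and 8 did not pass. Across the 23 the median difference was -0.58, from -0.49 in A375 and 0.15 in A2058. THBS1, thrombospondin, an adhesive matrix protein, responded by -1.76 in A375 and -0.20 in A2058, a difference of -1.56 ± 0.16 (adjusted p = 2.6e-06). PMEPA1, a feedback inhibitor of TGF-beta signalling, had FPKM values of 146, 128 and 137 in the controls, 154, 139 and 147 in KD1 and 59.7, 65.2 and 55.5 in KD2 of A375. The PMEPA1 values in A2058 were 21.97, 19.9 and 18.9 in the controls, 39.9, 39.1 and 35.4 in KD1 and 43.8, 40.9 and 48.7 in KD2. For PMEPA1, the A375 KD2 libraries lay below the controls and those of KD1 overlapped them, and all 6 A2058 knockdown libraries lay above the 3 controls. The PMEPA1 response was -0.54 ± 0.078 in A375 and 1.00 ± 0.078 in A2058, a line difference of -1.55 ± 0.11 (adjusted p = 1.7e-07). ID1, an inhibitor of helix-loop-helix factors, differed by -1.21 ± 0.17 between the lines (A375 -0.49, A2058 0.72, adjusted p = 5.1e-05). Of 43 matrix, collagen and integrin genes in the table, 35 were tested, and 10 (28.6%) were higher in A375, 13 (37.1%) lower, and 12 did not pass. Their median difference was -0.21, from -0.093 in A375 and 0.20 in A2058. It was 0.24 with KD1 (13 higher, 11 lower) and -0.28 with KD2 (5 higher, 13 lower). With the length trend removed it was -0.051, with 10 higher and 12 lower. TIMP3, a matrix-bound inhibitor of metalloproteinases, responded by -1.59 in A375 and -0.00036 in A2058, a difference of -1.59 ± 0.12 (adjusted p = 2.1e-07). TIMP3 in A2058 moved by 0.46 ± 0.097 with KD1 and -0.46 ± 0.097 with KD2. SDC1, a heparan sulphate proteoglycan, had a line difference of 1.47 ± 0.19 (A375 -0.83, A2058 -2.30, adjusted p = 2.4e-05). ITGA6, a laminin receptor subunit, differed by -1.42 ± 0.24 between the lines (A375 -0.44, A2058 0.97, adjusted p = 3.0e-04). COL5A3, a fibrillar collagen chain, responded by -0.050 in A375 and 2.14 in A2058, a difference of -2.19 ± 0.17 (adjusted p = 3.3e-07).

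The coagulation and complement genes list had 15 tested members of 23 in the table, of which 2 (13.3%) were higher in A375, 6 (40%) lower, and 7 did not pass. The medians were 0.30 in A375 and 0.47 in A2058, with a median difference of 0.078. For coagulation and complement genes, the median and the larger count of calls differed in direction, but not under quantile normalization, with limma-voom or with the length trend removed. Coagulation and complement genes had a median of -0.26, with 2 higher and 8 lower, under quantile normalization, and of -0.077, with 2 higher and 6 lower, with limma-voom, and of -0.038, with 4 higher and 5 lower, with the length trend removed. There were 8 higher and 4 lower with KD1 alone and 2 higher and 9 lower with KD2 alone. CD55, which shields cells from complement, had FPKM values of 61.2, 58.4 and 52.01 in the controls, 26.7, 27.9 and 23.6 in KD1 and 13.4, 13.3 and 16.8 in KD2 of A375. The CD55 values in A2058 were 21.9, 22.6 and 21.4 in the controls, 31.4, 28.3 and 30.5 in KD1 and 47.4, 45.5 and 50.6 in KD2. For CD55, all 6 A375 knockdown libraries lay below their 3 controls, and all 6 of A2058 above theirs. The CD55 response was -1.53 ± 0.084 in A375 and 0.77 ± 0.084 in A2058, a line difference of -2.31 ± 0.12 (adjusted p = 3.7e-09).

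Regulators of apoptosis were called in both directions. Of 28 BCL2 family and apoptosis genes in the table, 24 were tested, and 7 (29.2%) were higher in A375, 8 (33.3%) lower, and 9 did not pass. Their median difference was -0.17, with median responses of 0.23 in A375 and 0.24 in A2058. Without both A375 libraries of lowest depth, 5 rather than 8 of the BCL2 family and apoptosis genes were lower. The lower count was 5 without A375 control library 2. BMF, a proapoptotic BH3-only protein, differed by 1.61 ± 0.17 between the lines (A375 0.84, A2058 -0.77, adjusted p = 3.7e-06). MCL1, an antiapoptotic BCL2 relative, had FPKM values of 133, 139 and 109 in the controls, 146, 156 and 125 in KD1 and 73.8, 78.2 and 121 in KD2 of A375. The MCL1 values in A2058 were 47.5, 47.3 and 45.7 in the controls, 77.2, 74.8 and 73.1 in KD1 and 128, 126 and 138 in KD2. For MCL1, both A375 knockdown arms overlapped the controls, and all 6 A2058 knockdown libraries lay above the 3 controls. With -0.17 ± 0.13 in A375 and 1.07 ± 0.13 in A2058, MCL1 gave a line difference of -1.24 ± 0.18 (adjusted p = 6.4e-05). MCL1 was not called with KD1 alone (-0.51). XIAP, an inhibitor of caspases, had a line difference of -1.31 ± 0.26 (A375 -0.53, A2058 0.77, adjusted p = 9.3e-04).

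Histone genes and histone acetylation were examined because the title of the series names chromatin. The replication-dependent histone genes list had 18 tested members of 45 in the table, of which 7 (38.9%) were higher in A375, 2 (11.1%) lower, and 9 did not pass. Median responses were 0.79 in A375 and 0.26 in A2058, and the median difference was 0.54. Replication-dependent histone genes had a median of 0.31, with 5 higher and 3 lower, with the length trend removed. There were 12 higher and 0 lower with KD1 alone and 2 higher and 6 lower with KD2 alone. Their near-identical copies can share reads, and most of their transcripts lack poly(A) tails, so single values are uncertain. H2BC21, a replication-dependent histone gene that also gives polyadenylated RNA, had FPKM values of 9.33, 7.96 and 8.51 in the controls, 64.9, 55.5 and 74.01 in KD1 and 30.5, 30.8 and 27.1 in KD2 of A375. The H2BC21 values in A2058 were 3.57, 4.28 and 4.02 in the controls, 1.91, 2.395 and 2.09 in KD1 and 7.23, 7.73 and 7.95 in KD2. For H2BC21, all 6 A375 knockdown libraries lay above the 3 controls, and the A2058 KD1 libraries lay below the controls and those of KD2 above them. Between the lines H2BC21 differed by 2.22 ± 0.13 (adjusted p = 1.7e-08), with 2.28 ± 0.094 in A375 and 0.055 ± 0.094 in A2058. H2BC21 in A2058 moved by -0.76 ± 0.11 with KD1 and 0.87 ± 0.11 with KD2. H2BC5 differed by 2.47 with KD1 and -0.043 with KD2, and H4C8 by -0.029 with KD1 and -2.71 with KD2. H2BC5 in A2058 moved by -0.78 ± 0.10 with KD1 and 0.84 ± 0.10 with KD2. Of 28 histone acetylation writers and erasers in the table, 24 were tested, and 10 (41.7%) were higher in A375, 6 (25%) lower, and 8 did not pass. Histone acetylation writers and erasers had median responses of 0.034 in A375 and -0.18 in A2058 and a median difference of 0.055. Histone acetylation writers and erasers had a median of 0.20, with 11 higher and 3 lower, with the length trend removed. HDAC11, a deacylase of class IV, responded by 0.87 in A375 and -0.86 in A2058, a difference of 1.74 ± 0.20 (adjusted p = 9.7e-06). HDAC6, a cytosolic deacetylase of tubulin, had a line difference of 0.92 ± 0.16 (A375 0.12, A2058 -0.81, adjusted p = 3.8e-04). HAT1, the acetyltransferase of new histone H4, differed by -0.79 ± 0.30 (adjusted p = 0.042), and lost its call in 16 of 18 fits without 1 library, at -0.82 to -0.69, being kept without A375 KD1 library 2 and A375 KD2 library 3.

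**Figure D5:**
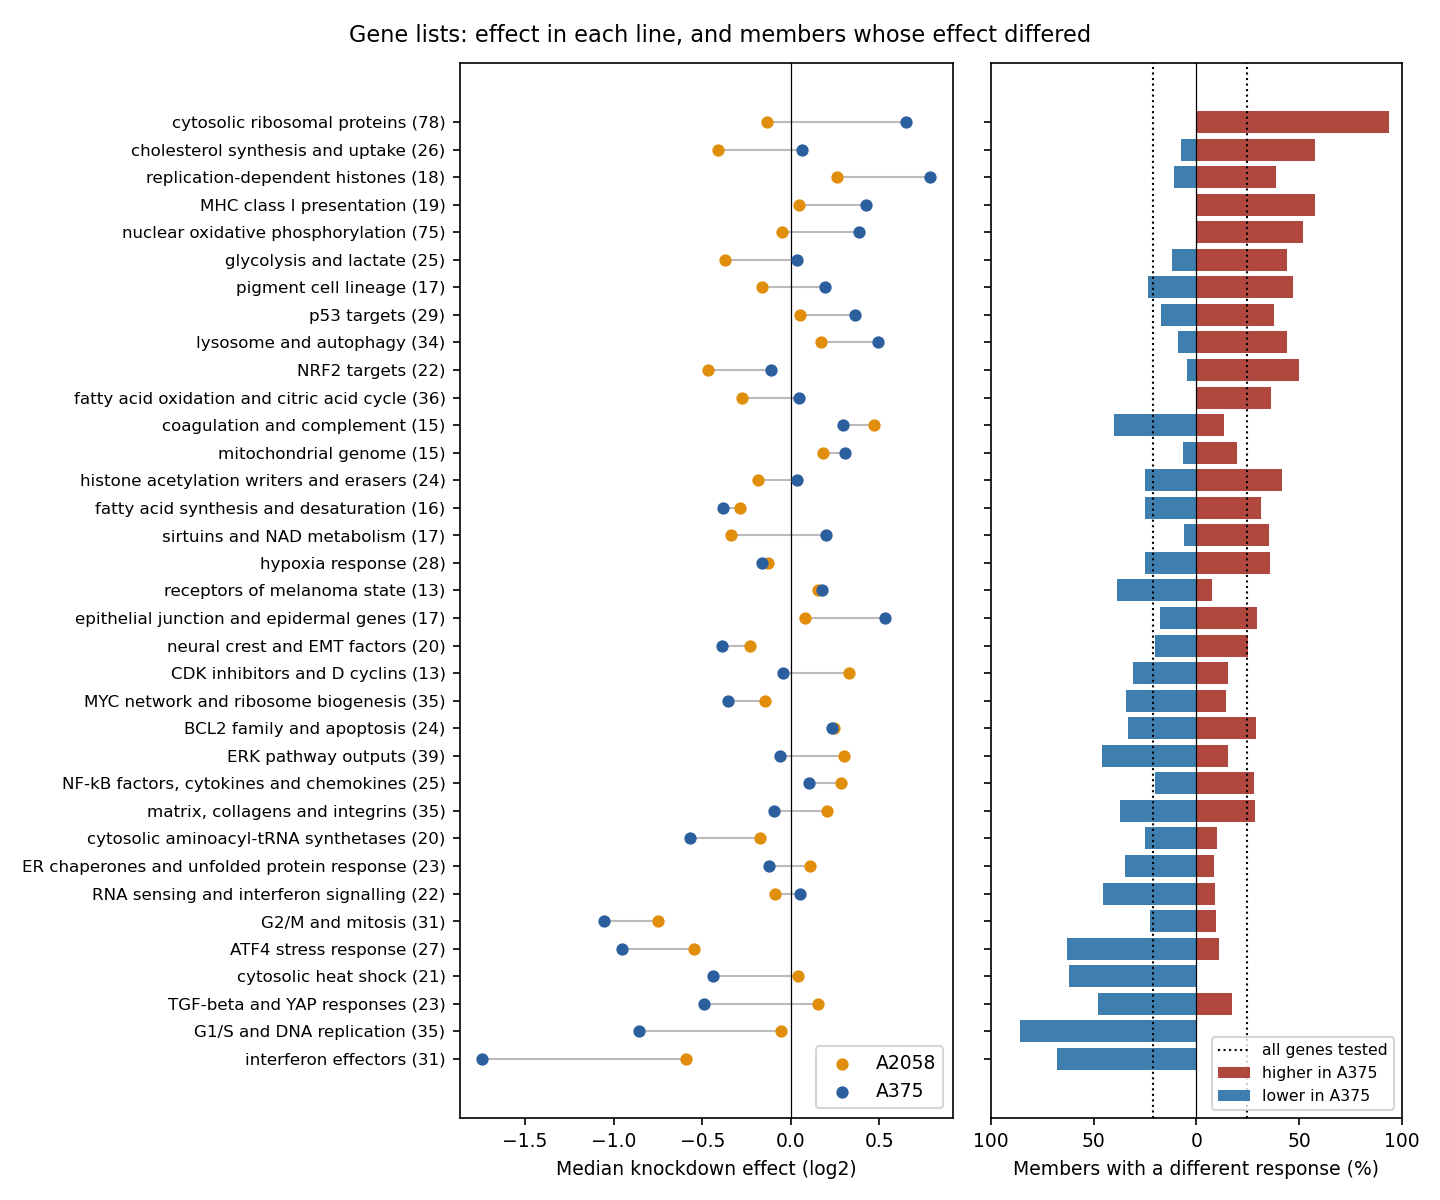
The larger gene lists (y axis, tested members in brackets), ordered by their median line difference. The left panel shows the median knockdown effect (x axis, log2) in A375 and in A2058 as joined points. In the right panel, bars show the percentage of members called higher or lower in A375 (x axis), with dotted lines for all genes tested. Interferon effectors (median difference -1.22) and cytosolic ribosomal proteins (median difference 0.80) stand at opposite ends.

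Genes that moved the same way in both lines over the mean of the hairpins but by different amounts, and genes called in 1 line, gave further large differences. TCN1, a carrier of cobalamin, had FPKM values of 50.1, 48.4 and 47.1 in the controls, 99.02, 98.3 and 107 in KD1 and 114, 139.9 and 141 in KD2 of A375. The TCN1 values in A2058 were 2.77, 3.67 and 3.26 in the controls, 16.7, 14.5 and 13.7 in KD1 and 54.1, 51.1 and 64.6 in KD2. For TCN1, all 12 knockdown libraries lay above the controls of their line. Between the lines TCN1 differed by -1.76 ± 0.14 (adjusted p = 3.2e-07), with 1.24 ± 0.098 in A375 and 2.99 ± 0.098 in A2058. NT5E, CD73, which makes adenosine, responded by 0.73 in A375 and 2.57 in A2058, a difference of -1.84 ± 0.18 (adjusted p = 1.8e-06). NT5E in A375 moved by 1.84 ± 0.14 with KD1 and -0.37 ± 0.14 with KD2. MYH15, a myosin heavy chain, had a line difference of -1.92 ± 0.24 (A375 0.91, A2058 2.83, adjusted p = 2.2e-05). MFSD3, a transporter of the major facilitator family, differed by 2.07 ± 0.15 between the lines (A375 -0.56, A2058 -2.62, adjusted p = 2.1e-07). ZNF358, a zinc finger protein, responded by -0.49 in A375 and -2.09 in A2058, a difference of 1.60 ± 0.23 (adjusted p = 6.1e-05); its hairpins parted in A375, at 0.97 and -1.95. ADGRA2, an adhesion receptor, had a line difference of 1.51 ± 0.16 (A375 -0.27, A2058 -1.78, adjusted p = 4.9e-06). FNDC4, a secreted fibronectin-type protein, differed by 1.96 ± 0.19 between the lines (A375 2.35, A2058 0.39, adjusted p = 1.6e-06). ID4, an inhibitor of helix-loop-helix factors, responded by 1.92 in A375 and 0.31 in A2058, a difference of 1.60 ± 0.15 (adjusted p = 1.3e-06). CACFD1, a small membrane protein, had a line difference of 1.36 ± 0.17 (A375 1.67, A2058 0.31, adjusted p = 2.3e-05).

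FBXO2, a ubiquitin ligase subunit that binds glycoproteins, differed by 2.35 ± 0.18 between the lines (A375 2.12, A2058 -0.24, adjusted p = 2.3e-07). MRGPRX3, a receptor of the Mas-related family, responded by 2.11 in A375 and -0.025 in A2058, a difference of 2.13 ± 0.17 (adjusted p = 2.8e-07). PRRG4, a membrane protein with a Gla domain, had a line difference of -1.63 ± 0.13 (A375 0.073, A2058 1.70, adjusted p = 4.8e-07). PRRG4 in A375 moved by -0.36 ± 0.11 with KD1 and 0.51 ± 0.11 with KD2. WDR25, a WD repeat protein, differed by 1.82 ± 0.20 between the lines (A375 -0.029, A2058 -1.85, adjusted p = 7.5e-06). THEM6, a protein of the thioesterase superfamily, responded by 0.045 in A375 and -1.49 in A2058, a difference of 1.53 ± 0.17 (adjusted p = 6.7e-06). THEM6 in A375 moved by -0.38 ± 0.14 with KD1 and 0.47 ± 0.14 with KD2. RTL8B, a gene derived from a retrotransposon, had a line difference of 1.52 ± 0.17 (A375 0.070, A2058 -1.45, adjusted p = 7.4e-06).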

How the data were processed

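RNA-seq was run on total RNA with paired reads of 50 nt, per the labels. Per the submitters' processing notes the tools were FastQC 0.11.9, MultiQC 1.9, Trimmomatic 0.39, STAR 2.7.3a, Subread 2.0.0 with featureCounts and DESeq2 1.28.1, on GRCh38 with GENCODE 34. No source used here states the strand and multi-mapping settings, so antisense and duplicated genes stay uncertain. The FPKM values used here were deposited by the authors, 1 column per library for 26004 genes, and no column of other samples was left unused (0). A base mean signal per gene, which the authors deposited in a comparison table, served to recover whole reads.

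The FPKM values were transformed to log2(FPKM + 0.5) and fitted with limma 3.58.1 in R 4.3.3, with 6 groups, 18 libraries, a variance trend and Benjamini-Hochberg adjustment over all 11172 genes tested, at 0.05. Fold changes on this scale understate changes of low genes, and ± is the standard error of the fit throughout. Dividing each FPKM by the worth of 1 read returned whole reads for 100% of nonzero values (tolerance 0.05), from which depths, relative gene lengths and a fit with limma-voom were taken. Replicate libraries differed beyond counting noise in every pair (chi-square per gene 6.01 to 66.8). Replicate numbers did not pair libraries: their deviations had r from -0.69 to 0.51, over 0.1 in 2 of 18 pairs. The fit was tested on simulated data.

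The 40 gene lists and the members were chosen with earlier results of these data known. Genes were named by a rule: protein-coding, a highest group mean of 2 FPKM or more, a line difference called overall and with each hairpin in the same direction, and no replication-dependent histone, taking the 5 largest of each opposite class and the 3 largest of each other class, with a change under 0.25 in the uncalled line. Up to 4 members per list with the largest absolute difference, and some further members by role, were added. RRM2 was shown after its values were seen. Some genes that the rule took are not reported here. Gene positions and types came from GENCODE 44, which matched 25905 identifiers (99.6%), and promoters from RefSeq (GRCh38.p14). Alternatives varied the pseudocount (0.1 and 1), the filter, scaling, variance model, library weights, block, hairpin and each library in turn.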

Additional observations from a re-analysis of the deposited data

Results flagged for a closer look

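The response to SIRT5 knockdown differed between A375 and A2058, by the test of the difference itself, at 5112 of 11172 genes. The test of the difference between hairpins in that line difference passed at 3641 genes, so the contrast between lines was not the same for KD1 and KD2 at those genes.

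The 10 genes here were selected for opposite moves in the lines and a line difference called alike overall and with each hairpin. For those rising in A375 it was 3.23 for A2M, 3.14 for NRN1, 2.64 for RAB26, 2.31 for CXCL2 and 2.24 for MAPK4. For those falling it was -2.86 for INHBA, -2.75 for TIMP1, -2.59 for AREG, -2.44 for ACTBL2 and -2.43 for EGR3. Each kept its direction without any 1 library. A2M, AREG and ACTBL2 moved oppositely with the hairpins in 1 line. Groups of 3 libraries are too small for a test of single outlying libraries.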

How the results depend on the processing

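The count of genes with a line difference stayed within 1.5 times of 5112 under every alternative run except library weights, which gave 8001 in all and 3975 with a lower response in A375. Leaving out 1 library at a time gave 4021 to 6889 in all, 2208 to 3441 higher and 1813 to 3448 lower in A375, and 5877 to 8090 genes changed within A375 and 4755 to 6677 within A2058. The lowest total was without A375 control library 2 and the highest without A375 KD2 library 3. With a replicate block the total was 4132, but the numbers do not pair the libraries. A further 2 alternatives were chosen after seeing the data: removing the length trend gave 5062, and leaving out both A375 libraries of lowest depth gave 4092.

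Of 5369 values (159 named genes, 34 alternatives), 5190 kept their call, 156 lost it and 17 gained one. The other 6, called in either fit, changed sign. The latter were WARS1 with KD2 alone (-0.23), HSPA6 with KD1 alone (0.75), H2BC5 with KD2 alone (-0.04), FTL under quantile normalization (-0.06), and AQP3 (-0.28) and SIRT5 (-0.98) with limma-voom. The cause was not tested. The lower depth of A375 limits low genes most, and values of genes below an FPKM of 1 depend on the pseudocount. The p-values cover the spread between 3 wells, not between infections or between further lines.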

Other observations

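The line difference was called in opposite directions with the hairpins at 255 genes. The values of 3 of them, chosen after their values were seen, are given here, with no test of what they share. CRYAB, the small heat shock protein alpha-B-crystallin, had FPKM values of 0.358, 0.406 and 0.605 in the controls, 4.26, 3.401 and 5.81 in KD1 and 0.116, 0.193 and 0.167 in KD2 of A375. The CRYAB values in A2058 were 3.95, 3.81 and 3.41 in the controls, 3.05, 3.76 and 2.66 in KD1 and 19.3, 17.7 and 23.2 in KD2. For CRYAB, the A375 KD1 libraries lay above the controls and those of KD2 below them, and the A2058 KD2 libraries lay above the controls and those of KD1 overlapped them. Its line difference was 2.58 with KD1 and -2.81 with KD2, and the test of the difference between hairpins gave 5.39 ± 0.23 (adjusted p = 3.5e-10). VGF, a secreted neuropeptide precursor, had FPKM values of 340.1, 325 and 328 in the controls, 660.5, 504 and 683 in KD1 and 241, 226 and 216 in KD2 of A375. The VGF values in A2058 were 18.5, 16.4 and 17.5 in the controls, 12.96, 15.02 and 12.9 in KD1 and 54.9, 46.9 and 46.97 in KD2. For VGF, the A375 KD1 libraries lay above the controls and those of KD2 below them, and the A2058 KD1 libraries lay below the controls and those of KD2 above them. Its line difference was 1.23 with KD1 and -2.02 with KD2, and the test of the difference between hairpins gave 3.25 ± 0.15 (adjusted p = 8.7e-10). HSPA1A, an inducible HSP70 with a near-identical copy, so that its reads are uncertain, had FPKM values of 15.3, 16 and 17.4 in the controls, 38.9, 38.7 and 56.1 in KD1 and 11.5, 11.4 and 9.07 in KD2 of A375. The HSPA1A values in A2058 were 145, 141 and 131 in the controls, 208, 227 and 199 in KD1 and 474, 402 and 554 in KD2. For HSPA1A, the A375 KD1 libraries lay above the controls and those of KD2 below them, and all 6 A2058 knockdown libraries lay above the 3 controls. Its line difference was 0.81 with KD1 and -2.35 with KD2, and the test of the difference between hairpins gave 3.16 ± 0.20 (adjusted p = 1.4e-08). Over both hairpins CRYAB had a line difference of -0.11 ± 0.20 (adjusted p = 0.66), which did not pass the test. The same pattern stood in HSPA6.

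Genes of the mitochondrial genome were mostly not called. Of 15 mitochondrial genes in the table, 15 were tested, and 3 (20%) were higher in A375, 1 (6.67%) lower, and 11 did not pass. Their median line difference was 0.067, with median responses of 0.31 in A375 and 0.18 in A2058. Mitochondrial genes had a median of -0.16, with 2 higher and 5 lower, under quantile normalization, and of -0.15, with 2 higher and 6 lower, with the length trend removed. MT-RNR2, the large ribosomal RNA of mitochondria, had a line difference of 1.36 ± 0.37 (A375 0.77, A2058 -0.59, adjusted p = 0.0082), and was not called with KD2 alone (0.97). MT-RNR1, the small ribosomal RNA, had FPKM values of 818, 705 and 794 in the controls, 2236, 1918 and 2330 in KD1 and 10940, 1101 and 858 in KD2 of A375, where library 1 of KD2 lay far above the other 2. The MT-RNR1 difference was 1.64 ± 0.73 (adjusted p = 0.076) with that library and 1.06 without it, where it passed, and it also passed without library 2 (1.89) or library 3 (1.98) of that arm. MT-ND2, a subunit of complex I, differed by -0.58 ± 0.15 between the lines (A375 -0.22, A2058 0.36, adjusted p = 0.0064), and was not called with KD1 alone (-0.43). MT-CO2, a subunit of cytochrome oxidase, responded by 0.72 in A375 and 0.21 in A2058, a difference of 0.51 ± 0.14 (adjusted p = 0.0092), and was not called with KD2 alone (0.39).

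Epithelial junction and epidermal genes divided. The epithelial genes list had 17 tested members of 33 in the table, of which 5 (29.4%) were higher in A375, 3 (17.6%) lower, and 9 did not pass. Median responses were 0.54 in A375 and 0.080 in A2058, and the median difference was -0.012. For epithelial genes, the median and the larger count of calls differed in direction, but not under quantile normalization or with limma-voom. Epithelial genes had a median of -0.17, with 5 higher and 7 lower, under quantile normalization, and of -0.19, with 5 higher and 5 lower, with the length trend removed. S100A2, a calcium-binding protein of basal keratinocytes, had a line difference of -1.86 ± 0.23 (A375 -1.32, A2058 0.54, adjusted p = 1.9e-05). S100A4, a calcium-binding protein of motile cells, differed by 1.02 ± 0.19 between the lines (A375 0.67, A2058 -0.35, adjusted p = 4.8e-04). JUP, plakoglobin, responded by 0.54 in A375 and -0.62 in A2058, a difference of 1.15 ± 0.15 (adjusted p = 3.1e-05), and was not called with KD2 alone (0.31). AQP3, the water and glycerol channel, had FPKM values of 4.58, 4.16 and 4.59 in the controls, 57.4, 47.1 and 64.8 in KD1 and 23.9, 20.2 and 16.3 in KD2 of A375. In A2058 AQP3 stood at 0.137, 0.211 and 0.117 in the controls, 1.65, 1.38 and 0.9602 in KD1 and 1.23, 1.61 and 1.72 in KD2. All 12 knockdown libraries lay above the controls of their line. Its difference of 1.24 ± 0.20 (adjusted p = 1.5e-04) moved with the added constant: it was 0.31 with 0.1 in place of 0.5, and -0.28 with limma-voom, neither called.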
